A study of Mus musculus with 17 samples.

Results

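KC2 and KC1 are the labels of a pair of Kupffer cell subsets, and their transcriptomes were compared here in 8 of the 17 libraries of a mouse liver study: 4 labelled KC2 and 4 labelled KC1. These libraries were chosen by their labels alone, and every gene of the table that holds them was considered. Both groups are labelled as Kupffer cells, which are the liver's own macrophages, from mice induced with DEN (in liver work usually the carcinogen diethylnitrosamine), and the labels add the abbreviation PME without spelling it out. Of 41 tested markers of sinusoidal endothelium, 40 were called higher in KC2. In every KC2 library the summed 42 endothelial markers exceeded the summed 20 markers of macrophages in general. That excess depends in part on the unlike list lengths and on Dnase1l3, an abundant endothelial list member that Kupffer cells share. The markers of the KC2 libraries go against a reading as Kupffer cells alone, and KC2 and KC1 are used below as names of the labelled groups. Neither group carried a stated genetic change, so the subset is the one labelled difference between them. The sources used here give no strain, sex, age, dose or gates for the subsets, nor do they say whether each replicate was a different animal. The p-values thus rest on library-to-library spread alone, and that spread may be technical. The other 9 libraries hold early liver tumour cells and normal liver and have tables of their own. The study's design names KC2 against KC1 as a comparison of its own, and its title concerns how tissue macrophages are remodelled by tumour precursor cells.

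Kupffer cells sit inside the liver sinusoids, where they clear particles, dying cells, aged red cells and bacterial products from the blood, and they touch the sinusoidal endothelium that lines these vessels. In mice the KC2 subset has been described by high surface CD206, the mannose receptor encoded by Mrc1, together with ESAM, an adhesion molecule of endothelial and some blood cells, whereas KC1 cells, the larger subset, are low for both. KC2 cells have also been described as carrying transcripts of sinusoidal endothelial cells, so transcripts of that and of other liver cell types were read beside each group of macrophage genes. Marco encodes a scavenger receptor of macrophages that binds bacteria and particles.

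The 4 KC2 libraries held 16689355, 16195248, 16743459 and 16064258 expected counts, and the 4 KC1 libraries 15724801, 16393401, 16712329 and 15353249 (here and below in the order of replicates 1 to 4). Levels are counts per 1000000 counts of the TMM-scaled library (CPM), means are given ± SD over the 4 libraries of a group, and log2 fold changes are KC2 over KC1 ± SE. A floor of 3 counts in a library corresponded to between 0.15 and 0.208 CPM. KC2 replicate 1 stood apart from the other KC2 libraries. Chi-square per degree of freedom over genes was 131 to 168 for pairs that included it, 23.2 to 38.0 among KC2 replicates 2 to 4 and 12.6 to 40.6 among KC1 replicates. All pairs differed by more than sampling noise, and each library counted as 1 replicate. Spearman correlations of log2 CPM, as a description over genes, were 0.935 to 0.977 within KC2, 0.984 to 0.991 within KC1 and 0.714 to 0.806 between the groups. The first principal component held 85.4% of the variance and separated the groups, and the second, with 5.89%, separated KC2 replicate 1 from the rest. The counts of called members over a whole list are therefore given with and without that library where it changed them.

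KC2 and KC1 differed over most of the measured transcriptome. Of 12774 genes tested with edgeR's quasi-likelihood F test, 7638 (59.8%) were called at a Benjamini-Hochberg adjusted p under 0.05, 4078 of them higher in KC2 (31.9%) and 3560 lower (27.9%). With a log2 fold change of at least 1 in size, 2827 genes were higher (22.1%) and 1863 lower (14.6%). In 3729 genes (29.2%) every KC2 library lay above every KC1 library, and in 3521 (27.6%) every KC2 library lay below, 7250 genes (56.8%) without overlap in all. The median log2 fold change of all tested genes was 0.03. Without KC2 replicate 1, 4136 genes were called higher and 3668 lower, and 7296 of the 7638 genes called with 8 libraries were called again, 0 of them with the opposite sign. Shares of a gene list below have to be read against these high shares among all genes, and against a median size of 0.741 of the log2 fold change over all tested genes.

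Mrc1 and Esam were higher in KC2, the direction described above for that subset, and Marco was lower. Mrc1 (chromosome 2, 14229414 to 14332023, gene ID 17533) was at 793, 950.2, 721 and 898 CPM in KC2 libraries, against 99.05, 285, 72.7 and 100.2 CPM in KC1 libraries. Coordinates here and below are those of RefSeq on build GRCm38. The Mrc1 groups did not overlap, and KC1 replicate 2 was the highest KC1 library (log2 fold change 2.59 ± 0.39, adjusted p = 0.000235). Esam (chromosome 9, 37528089 to 37538319, gene ID 69524) was at 888, 532, 518 and 539 CPM in KC2 libraries, against 12.6, 8.03, 10.7 and 3.75 CPM in KC1 libraries, again without overlap (log2 fold change 6.14 ± 0.39, adjusted p = 6.18e-07). Marco (chromosome 1, 120474538 to 120505024, gene ID 17167) was at 16.1, 274, 133 and 192 CPM in KC2 libraries, against 7630.4, 7646, 8889 and 8388 CPM in KC1 libraries (log2 fold change -5.73 ± 0.71, adjusted p = 6.09e-05). Marco was thus far lower in every KC2 library, and lowest in KC2 replicate 1. The sources used here do not give the sort that defined the subsets, so it is not known which of these genes, or their proteins, were used to separate the cells. Mrc1 had a log2 fold change of 3.20 without KC1 replicate 2.

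Genes that mark Kupffer cells and macrophages in general were detected in both groups, and in each list more members were called lower than higher in KC2. Of the Kupffer cell identity list, 3 of 25 tested members were higher in KC2 and 14 lower (median log2 fold change -1.23), and 5 higher and 16 lower without KC2 replicate 1. Of the pan-macrophage list, 1 of 20 tested members were higher in KC2 and 9 lower (median log2 fold change -0.90), the remaining 10 not passing the test, and 2 higher and 12 lower without KC2 replicate 1. The summed Kupffer cell list stood at 5999, 17121, 19000.0 and 20820.0 CPM in KC2 libraries, against 32024, 44571, 36783 and 36173 CPM in KC1 libraries. The summed pan-macrophage list stood at 6559.9, 25117, 27124 and 28910.0 CPM in KC2 libraries, against 36943, 41229, 39919 and 38379 CPM in KC1 libraries. For both sums the groups did not overlap and KC2 replicate 1 was far below the other KC2 libraries. In bulk RNA, fewer cells of a type and less RNA per cell cannot be told apart.

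The Kupffer cell genes did not move as a block. Clec4f, the lectin most specific to mouse Kupffer cells, was at 227, 1789, 1882 and 2148 CPM in KC2 libraries, against 3155, 4733, 3559.5 and 3091 CPM in KC1 libraries. It missed the threshold with 8 libraries (log2 fold change -1.27 ± 0.52, adjusted p = 0.0564), though every KC2 library lay below every KC1 library. With all 8 libraries it was called lower under upper-quartile scaling (adjusted p = 0.0476), without the filter on low counts (adjusted p = 0.049) and with limma voom and quality weights (adjusted p = 0.0121). Vsig4, a complement receptor of resident macrophages, was at 64.9, 557, 555 and 671 CPM in KC2 libraries, against 286, 694, 262 and 238 CPM in KC1 libraries, and the groups overlapped (log2 fold change 0.32 ± 0.58, adjusted p = 0.653). Lyz2, the lysozyme of myeloid cells, overlapped too and was at 6032 ± 2945 CPM in KC2 and 5074 ± 663 CPM in KC1 (adjusted p = 0.593). Spic, the transcription factor of red pulp macrophages that heme induces, was at 4.67, 17.2, 19.9 and 20.4 CPM in KC2 libraries, against 703, 501, 733 and 667 CPM in KC1 libraries (log2 fold change -5.39 ± 0.43, adjusted p = 2.92e-06). Slc16a9, a monocarboxylate transporter family member, followed the same direction at 2.33 ± 1.93 CPM in KC2 and 40.5 ± 3.07 CPM in KC1 (log2 fold change -4.13 ± 0.48, adjusted p = 3.45e-05). Timd4, the phosphatidylserine receptor of long-lived resident macrophages, was at 9.74, 68.9, 78.01 and 89.8 CPM in KC2 libraries, against 368, 412, 375 and 400.0 CPM in KC1 libraries (log2 fold change -2.66 ± 0.51, adjusted p = 0.00112). On the other side, Hpgd, which degrades prostaglandins, was at 239, 362, 414 and 443 CPM in KC2 libraries, against 52.7, 129.5, 45.7 and 43.8 CPM in KC1 libraries (log2 fold change 2.42 ± 0.37, adjusted p = 0.000222). Clec1b, the podoplanin receptor, was at 240.2 ± 44.1 CPM in KC2 and 122 ± 62.5 CPM in KC1 (log2 fold change 0.98 ± 0.30, adjusted p = 0.0152), with overlapping groups. Id3, a helix-loop-helix factor needed for Kupffer cell development, was at 917 ± 139.8 CPM in KC2 and 517 ± 0.704 CPM in KC1 (log2 fold change 0.83 ± 0.14, adjusted p = 0.000598). Slc16a9 had a log2 fold change of -4.79 without KC2 replicate 4. Clec1b was no longer called without KC1 replicate 3 (log2 fold change 0.84, adjusted p = 0.0515). Clec4f was called without KC2 replicate 1 (log2 fold change -0.91, adjusted p = 0.000449). Lyz2 was called without KC2 replicate 1 (log2 fold change 0.55, adjusted p = 0.00458).

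Among pan-macrophage genes, Cx3cr1, the fractalkine receptor of monocytes and some tissue macrophages, was the member called higher, at 93.9, 222, 292 and 193 CPM in KC2 libraries, against 30.1, 72.8, 22.8 and 33.8 CPM in KC1 libraries (log2 fold change 2.33 ± 0.41, adjusted p = 0.000629). Itgam, the CD11b integrin chain, was at 116 ± 69.2 CPM in KC2 and 877 ± 36.5 CPM in KC1 (log2 fold change -2.92 ± 0.46, adjusted p = 0.000301). Cd68, a lysosomal glycoprotein of macrophages, was at 497 ± 241 CPM in KC2 and 2311 ± 152 CPM in KC1 (log2 fold change -2.22 ± 0.39, adjusted p = 0.000603). Fcgr1, the high-affinity IgG receptor, was at 128 ± 72.5 CPM in KC2 and 527 ± 45.1 CPM in KC1 (log2 fold change -2.05 ± 0.50, adjusted p = 0.00485). Without KC2 replicate 1 the log2 fold changes of Itgam, Cd68 and Fcgr1 were -2.59, -1.91 and -1.69, closer to 0 and called. Ptprc, the leukocyte antigen CD45, was at 359 ± 142 CPM in KC2 and 405 ± 38.4 CPM in KC1 (adjusted p = 0.606).

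**Figure D1:**
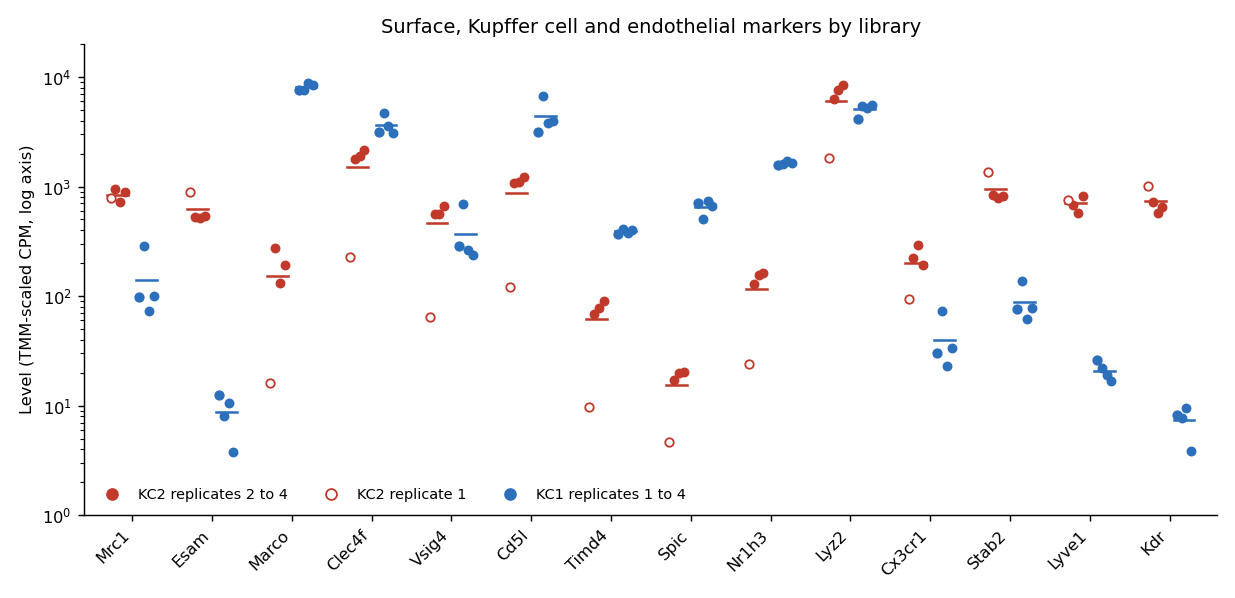
Level of 14 marker genes in each library (TMM-scaled CPM, log axis), KC2 in red to the left of KC1 in blue; each point is a library, the open red point is KC2 replicate 1 and the short line is the group mean. Mrc1, Esam and the endothelial genes Stab2, Lyve1 and Kdr lay higher in every KC2 library than in any KC1 library, Marco, Spic, Timd4 and Nr1h3 lower, and Vsig4 and Lyz2 overlapped.

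Sinusoidal endothelial genes were the list with the highest median log2 fold change. Of 41 tested members, 40 were higher in KC2 and 0 lower, with a median log2 fold change of 6.38, or 6.33 with genes absent from KC1 set at their lower bound. The remaining tested member, Cdh5, an endothelial cadherin that also stands on the Kupffer cell list, was at 187 ± 51.1 CPM in KC2 and 150.3 ± 33.7 CPM in KC1 (adjusted p = 0.234). Summed over the list, the level was 59244, 35056, 35082 and 34840.0 CPM in KC2 libraries, against 1776, 1629.7, 2045 and 1429.6 CPM in KC1 libraries. KC2 replicate 1, with the lowest macrophage sum, had the highest endothelial sum, and the other 3 KC2 libraries lay close together. The endothelial sum amounted to 903, 139.6, 129 and 120.5% in KC2 libraries, against 4.81, 3.95, 5.12 and 3.73% in KC1 libraries, taken relative to the pan-macrophage sum of the same library, a ratio added after the data had been seen. Every KC2 library thus held more of the endothelial than of the macrophage list, though the lists have 42 and 20 members. Dnase1l3 alone, which Kupffer cells share, gave 14367, 6844, 7534 and 6732 CPM of the endothelial sum in KC2 libraries. Endothelial genes were also detected in KC1, and 1 list member, Wnt9b, had no count there.

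Clec4g, a lectin of sinusoidal endothelium, was at 5104, 3798, 3667 and 3679 CPM in KC2 libraries, against 9.47, 11.9, 11.3 and 7.35 CPM in KC1 libraries (log2 fold change 8.66 ± 0.27, adjusted p = 5.76e-08). Igfbp7, a secreted binding protein of vascular cells, was at 248 ± 36.1 CPM in KC2 and 0.576 ± 0.379 CPM in KC1 (log2 fold change 8.73 ± 0.36, adjusted p = 7.44e-08). F8, the coagulation factor that liver endothelium makes, was at 415 ± 95.2 CPM in KC2 and 1.36 ± 0.768 CPM in KC1 (log2 fold change 8.24 ± 0.43, adjusted p = 2.04e-07). Ehd3, a membrane trafficking protein of sinusoidal endothelium, was at 2961 ± 814 CPM in KC2 and 24.8 ± 6.93 CPM in KC1 (log2 fold change 6.90 ± 0.33, adjusted p = 1.41e-07). Dnase1l3, a secreted nuclease that Kupffer cells share with the endothelium, was at 14367, 6844, 7534 and 6732 CPM in KC2 libraries, against 886, 675, 1157 and 664 CPM in KC1 libraries (log2 fold change 3.39 ± 0.32, adjusted p = 8.74e-06). The scavenger receptor gene Stab2, the hyaluronan receptor gene Lyve1 and the VEGF receptor gene Kdr, textbook members named after their values were seen, had log2 fold changes of 3.42 ± 0.30, 5.08 ± 0.20 and 6.66 ± 0.33, each called. The part of endothelial RNA in the other differences was not tested, and the endothelial sum of each group has to be read beside them.

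Markers of lymphocytes and of bile duct cells were also higher in KC2. Of the T and NK cell list, 27 of 28 tested members were higher in KC2 and 1 lower (median log2 fold change 5.83), with the same counts without KC2 replicate 1. The lower member was Ccl5, a chemokine that macrophages make as well. With Ccl5 the summed list was 515 to 1668 CPM in KC2 libraries, against 2664 to 5079 CPM in KC1 libraries, lower in every KC2 library, and without it the summed list stood at 1502, 577, 692 and 436 CPM in KC2 libraries, against 23.8, 19.1, 17.6 and 14.7 CPM in KC1 libraries. Nkg7, a granule protein of cytotoxic lymphocytes, was at 139.7, 63.8, 68.01 and 34.2 CPM in KC2 libraries, against 0.7603, 0.457, 0.134 and 0 CPM in KC1 libraries (log2 fold change 7.79 ± 0.65, adjusted p = 3.78e-06). Il2rb, the interleukin-2 receptor chain, was at 136 ± 103 CPM in KC2 and 1.404 ± 0.608 CPM in KC1 (log2 fold change 6.59 ± 0.59, adjusted p = 6.22e-06). Lck, the T cell kinase, was at 77.5 ± 44.4 CPM in KC2 and 2.41 ± 0.685 CPM in KC1 (log2 fold change 5.004 ± 0.40, adjusted p = 2.83e-06). Klrb1c, the NK1.1 antigen, had 4 counts over the KC1 libraries and was at 17.3 ± 11.9 CPM in KC2 and 0.0657 ± 0.0923 CPM in KC1 (log2 fold change 7.85 ± 0.86, adjusted p = 2.47e-05). Ncr1, an activating receptor of NK cells, had no count in KC1 and was at least 171-fold higher in KC2, set against a floor of 3 counts over the KC1 libraries (adjusted p = 3.31e-05). Each of these lay highest, or next to highest, in KC2 replicates 1 and 3. Nkg7 had a log2 fold change of 8.51 without KC1 replicate 1. Il2rb had a log2 fold change of 5.91 without KC2 replicate 1. Klrb1c had 1 count in KC1 without KC1 replicate 2, and then a ratio of KC2 to KC1 counts of 786 (95% interval 141 to 31059).

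Of the B and plasma cell list, 11 of 14 tested members were higher in KC2 and 3 lower (median log2 fold change 4.24). Cd79a, a chain of the B cell receptor complex, was at 93.7 ± 88.5 CPM in KC2 and 2.37 ± 0.508 CPM in KC1 (log2 fold change 5.30 ± 0.64, adjusted p = 4.57e-05). Ms4a1, which encodes CD20, and Fcrla, an Fc receptor-like protein of B cells, had log2 fold changes of 5.72 ± 0.74 and 5.93 ± 0.79. The lower members were Sdc1, a proteoglycan of plasma cells and other cell types (log2 fold change -2.88 ± 0.61), Cd22, an inhibitory lectin of B cells (log2 fold change -1.38 ± 0.19), and Bank1, a B cell scaffold (log2 fold change -0.69 ± 0.17). The summed list overlapped little, at 877, 268, 436 and 350.3 CPM in KC2 libraries, against 247, 279, 239 and 254 CPM in KC1 libraries. Cd22, Bank1 and Sdc1, at means of 113, 77.6 and 46.9 CPM in KC1, made up most of the sum in every KC1 library. The overlap of the sums thus rests on these members called lower. Of the cholangiocyte list, 10 of 10 tested members were higher in KC2 and 0 lower (median log2 fold change 5.17), and 9 higher and 0 lower without KC2 replicate 1. The bile duct sum was 231 to 930.2 CPM in KC2 libraries, against 13.97 to 21.3 CPM in KC1 libraries. Epcam, an adhesion molecule of biliary epithelium, had no count in KC1 and was at least 137-fold higher in KC2 (adjusted p = 0.00121). Spp1, or osteopontin, which bile duct cells and some macrophages make, was at 737, 255, 419 and 154 CPM in KC2 libraries, against 9.26, 14.1, 6.38 and 16.1 CPM in KC1 libraries (log2 fold change 5.09 ± 0.52, adjusted p = 1.51e-05). Cldn7, a tight junction protein, and the keratin gene Krt8 had log2 fold changes of 5.69 ± 0.94 and 3.62 ± 0.56. Cd79a, Ms4a1, Sdc1 and Krt8 had log2 fold changes of 4.41, 4.97, -4.11 and 2.77 without KC2 replicate 1. Fcrla had a log2 fold change of 6.60 without KC1 replicate 3. Epcam was, without KC2 replicate 1, at least 71.6-fold higher in KC2. Cldn7 had 2 counts in KC1 without KC1 replicate 1, and then a ratio of KC2 to KC1 counts of 90.7 (95% interval 24.9 to 752). Cldn7 had 2 counts in KC1 without KC1 replicate 4, and then a ratio of KC2 to KC1 counts of 90.8 (95% interval 24.9 to 753).

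Granulocyte, monocyte and dendritic cell genes showed both directions. Of the neutrophil list, 15 of 18 tested members were higher in KC2 and 2 lower (median log2 fold change 3.90), and 16 higher and 2 lower without KC2 replicate 1. S100a8, a calcium-binding protein of neutrophils and monocytes, was at 197, 1197, 552 and 1439 CPM in KC2 libraries, against 67.9, 17.3, 43.2 and 20.9 CPM in KC1 libraries (log2 fold change 4.50 ± 0.67, adjusted p = 0.000199). Its partner S100a9 was at 1084 ± 806 CPM in KC2 and 43.7 ± 32.4 CPM in KC1 (log2 fold change 4.63 ± 0.76, adjusted p = 0.000402), and both were highest in KC2 replicates 2 and 4. Camp and Ltf, the granule proteins cathelicidin and lactoferrin, had log2 fold changes of 6.93 ± 0.50 and 6.61 ± 0.71. Il1r2, the decoy receptor for interleukin-1, was at 163, 849, 312 and 715 CPM in KC2 libraries, against 25.5, 4.502, 11.8 and 7.56 CPM in KC1 libraries (log2 fold change 5.37 ± 0.68, adjusted p = 6.91e-05). The neutrophil members called lower were Fpr1, a formyl peptide receptor also found on macrophages, at 80.9 ± 48.5 CPM in KC2 and 759 ± 93.5 CPM in KC1 (log2 fold change -3.23 ± 0.52, adjusted p = 0.00036). Lcn2, a siderophore-binding acute phase protein, was at 100.5 ± 73.8 CPM in KC2 and 402 ± 119.7 CPM in KC1 (log2 fold change -2.0005 ± 0.54, adjusted p = 0.00813). Csf3r, the G-CSF receptor, overlapped at 552 ± 369 CPM in KC2 and 558 ± 76.2 CPM in KC1 (adjusted p = 0.982). The summed neutrophil list stood at 1188, 6721, 2809 and 7024 CPM in KC2 libraries, against 2213, 1482, 2043 and 1904 CPM in KC1 libraries. KC2 replicate 1 lay below every KC1 library. Fpr1, Csf3r and Lcn2, none of them called higher, made up most of the sum in every KC1 library. In KC2 replicate 1 they were at 14.0, 142 and 22.7 CPM, a small part of its sum. The place of KC2 replicate 1 below KC1 thus rests on these members. S100a9, Ltf and Il1r2 had log2 fold changes of 5.22, 8.02 and 5.99 without KC1 replicate 1.

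Of the monocyte and infiltrating macrophage list, 12 of 21 tested members were higher in KC2 and 5 lower (median log2 fold change 1.93), and 14 higher and 5 lower without KC2 replicate 1. F13a1, the factor XIII chain of monocytes and macrophages, was at 35.8, 252, 185 and 269 CPM in KC2 libraries, against 12.9, 8.55, 12.8 and 9.501 CPM in KC1 libraries (log2 fold change 4.08 ± 0.53, adjusted p = 8.2e-05). Fabp5, a fatty acid binding protein, was at 115 ± 15.05 CPM in KC2 and 9.62 ± 2.29 CPM in KC1 (log2 fold change 3.58 ± 0.20, adjusted p = 2.52e-07). Lower members included Plac8, at 70.9 ± 13.8 CPM in KC2 and 556 ± 84.9 CPM in KC1 (log2 fold change -2.97 ± 0.20, adjusted p = 6.99e-07), Treml4, a receptor of patrolling monocytes and some macrophages (log2 fold change -2.88 ± 0.41), and Itgal, the CD11a integrin chain (log2 fold change -2.71 ± 0.28). Lgals3, the lectin galectin-3, was lower too, at 342 ± 149 CPM in KC2 and 887 ± 106 CPM in KC1 (log2 fold change -1.37 ± 0.33, adjusted p = 0.00463). Of the dendritic cell list, 14 of 19 tested members were higher in KC2 and 2 lower (median log2 fold change 2.58). Cd209a, the mouse DC-SIGN of monocyte-derived dendritic cells, was at 43.1, 46.9, 42.5 and 47.4 CPM in KC2 libraries and had no count in any KC1 library, which made it at least 883-fold higher (adjusted p = 1.66e-07). Flt3, the growth factor receptor of dendritic cell precursors, had a ratio of KC2 to KC1 counts of 474 (95% interval 162 to 2303), and Siglech, a lectin of plasmacytoid dendritic cells, one of 420.4 (95% interval 144 to 2041), with intervals that cover counting error only. Dpp4, a peptidase on dendritic, T and endothelial cells, was at 655 ± 153 CPM in KC2 and 3.53 ± 2.01 CPM in KC1 (log2 fold change 7.53 ± 0.48, adjusted p = 6.18e-07). The members called lower were Wdfy4, a cross-presentation factor (log2 fold change -1.34 ± 0.16), and Bst2, a tetherin that interferon induces (log2 fold change -1.03 ± 0.17). Flt3 had 1 count in KC1 without KC1 replicate 1, and then a ratio of KC2 to KC1 counts of 1075 (95% interval 193 to 42487). Siglech had 1 count in KC1 without KC1 replicate 3, and then a ratio of KC2 to KC1 counts of 943 (95% interval 169 to 37288).

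Hepatocyte, stellate and red cell lists had medians nearer 0 than the endothelial, bile duct, lymphoid and myeloid lists. Of the hepatocyte list, 13 of 24 tested members were higher in KC2 and 3 lower (median log2 fold change 0.76), and 11 higher and 3 lower without KC2 replicate 1. Alb, the hepatocyte's albumin, was at 149.7, 82.9, 89.7 and 77.4 CPM in KC2 libraries, against 28.8, 15.3, 20.7 and 14.1 CPM in KC1 libraries (log2 fold change 2.34 ± 0.28, adjusted p = 4.29e-05), while the fibrinogen chain genes Fga, Fgb and Fgg were lower in KC2, with log2 fold changes of -1.78 ± 0.33, -2.05 ± 0.38 and -1.59 ± 0.28. Trf, the iron carrier transferrin, was at 1068 ± 456 CPM in KC2 and 518 ± 158 CPM in KC1 (log2 fold change 1.04 ± 0.36, adjusted p = 0.0274). Hp, the hemoglobin-binding haptoglobin that neutrophils make too, was at 262 ± 178 CPM in KC2 and 57.5 ± 16.8 CPM in KC1 (log2 fold change 2.19 ± 0.53, adjusted p = 0.0045), both with overlapping groups. Of the stellate and mesenchymal list, 6 of 15 tested members were higher in KC2 and 2 lower (median log2 fold change 0.85), 7 higher and 2 lower without KC2 replicate 1, and 1 lower without KC1 replicate 1. Bgn, a proteoglycan of mesenchymal and endothelial cells, was at 267 ± 89.6 CPM in KC2 and 3.68 ± 0.566 CPM in KC1 (log2 fold change 6.18 ± 0.27, adjusted p = 9.04e-08), whereas the pericyte receptor gene Pdgfrb was at 0.529 ± 0.4799 CPM in KC2 and 2.07 ± 0.435 CPM in KC1 (log2 fold change -1.95 ± 0.61, adjusted p = 0.0177). Of the erythroid and megakaryocyte list, 1 of 11 tested members were higher in KC2 and 0 lower (median log2 fold change 0.45). Without KC1 replicate 1, 3 members were called higher, and without KC2 replicate 1, KC2 replicate 4 or KC1 replicate 4, 1 member was called lower. The called member was Pf4, a platelet chemokine that macrophages also make, at 103 ± 48.5 CPM in KC2 and 19.7 ± 6.14 CPM in KC1 (log2 fold change 2.39 ± 0.38, adjusted p = 0.000315). The alpha globin genes Hba-a1 and Hba-a2, near-identical copies whose reads the counting could split, were not called (adjusted p = 0.255 and 0.106). Pdgfrb had a log2 fold change of -2.76 without KC2 replicate 3. Trf was no longer called without KC2 replicates 2, 3 or 4 or KC1 replicates 1, 3 or 4 (log2 fold change 0.89 to 1.004, adjusted p 0.0647 to 0.0804). Pdgfrb was no longer called without KC1 replicate 1 (log2 fold change -1.83, adjusted p = 0.0527). Hba-a2 was called without KC2 replicate 1 or KC1 replicate 4 (log2 fold change -1.14 to -1.03, adjusted p 0.0164 to 0.0468).

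**Figure D2:**
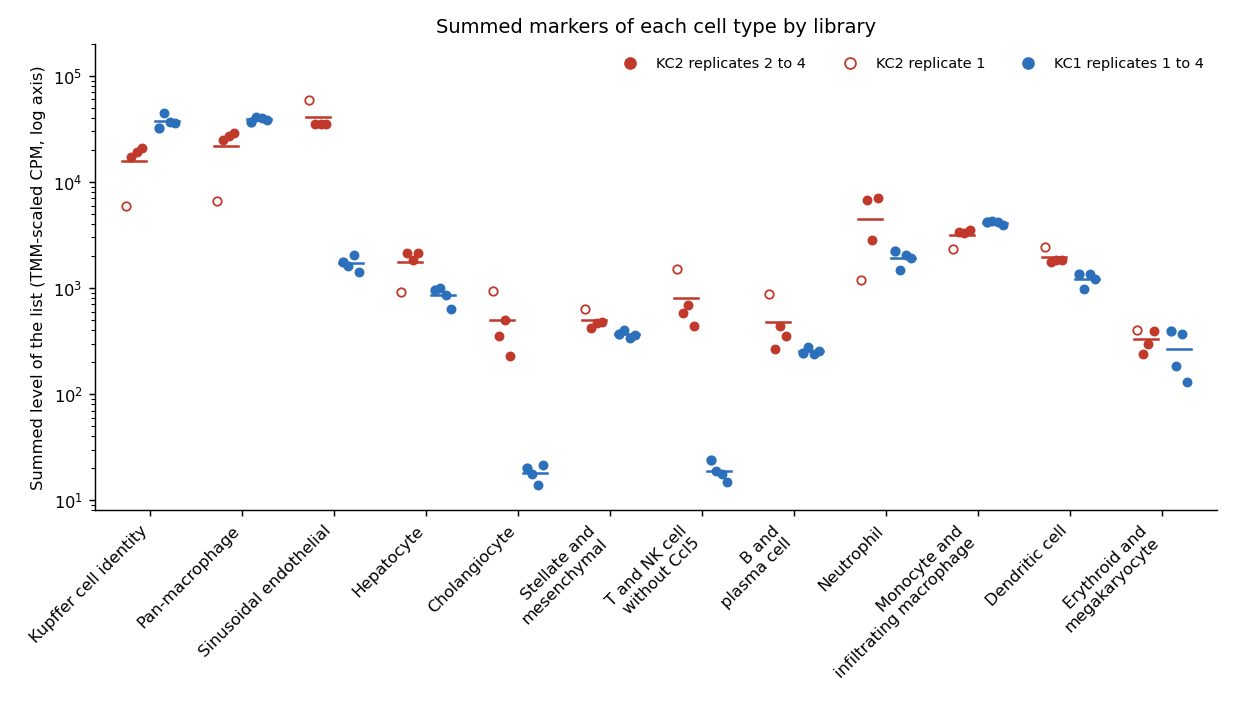
Summed level of each cell type's marker list per library (TMM-scaled CPM, log axis), KC2 in red to the left of KC1 in blue; each point is a library, the open red point is KC2 replicate 1 and the line is the group mean. KC2 replicate 1 had the lowest Kupffer cell and pan-macrophage sums and the highest endothelial, cholangiocyte, T and NK cell (plotted without Ccl5) and B cell sums, and the endothelial and cholangiocyte sums and the T and NK cell sum without Ccl5 of all 4 KC2 libraries lay above those of all 4 KC1 libraries.

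Interferon-stimulated genes were lower in KC2 almost without exception. These genes answer to type I and type II interferons, and many carry an interferon response element, a repeat of GAAA with a short spacer, close to their start. Of 41 tested members, 0 were higher and 37 lower, with a median log2 fold change of -1.42, against 31.9% and 27.9% of all genes (0 higher and 36 lower without KC2 replicate 1). In the 4 promoter windows shown here, each 250 bases long and ending just before the gene's start, capitals mark every match to a 10-base core of GAAA, any 2 bases and GAAA, on either strand (on the opposite strand it reads TTTC, any 2 bases and TTTC), and overlapping matches are joined. The sequences are from RefSeq, build GRCm38, and are written 5′ to 3′ in the direction of transcription. The windows lie for Isg15 at chr4:156200819-156201068 (minus strand), Ifit1 at chr19:34640639-34640888 (plus strand), Ifit3 at chr19:34583279-34583528 (plus strand) and Rsad2 at chr12:26456453-26456702 (minus strand). They belong to the genes whose values follow, textbook members that were chosen after their values were seen.

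Isg15: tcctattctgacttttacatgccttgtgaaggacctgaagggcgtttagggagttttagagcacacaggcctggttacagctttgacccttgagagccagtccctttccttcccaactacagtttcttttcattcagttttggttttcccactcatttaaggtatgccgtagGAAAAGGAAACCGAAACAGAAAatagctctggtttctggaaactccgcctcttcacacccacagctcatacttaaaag
Ifit1: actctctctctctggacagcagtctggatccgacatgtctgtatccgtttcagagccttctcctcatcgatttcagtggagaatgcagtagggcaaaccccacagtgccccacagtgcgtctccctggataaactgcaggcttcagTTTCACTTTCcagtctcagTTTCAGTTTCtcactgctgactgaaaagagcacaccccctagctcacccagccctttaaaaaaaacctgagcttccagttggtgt
Ifit3: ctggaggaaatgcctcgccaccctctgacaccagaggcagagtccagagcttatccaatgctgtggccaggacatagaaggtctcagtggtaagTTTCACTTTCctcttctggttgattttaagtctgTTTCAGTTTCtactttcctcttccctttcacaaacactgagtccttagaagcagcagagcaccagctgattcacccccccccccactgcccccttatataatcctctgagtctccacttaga
Rsad2: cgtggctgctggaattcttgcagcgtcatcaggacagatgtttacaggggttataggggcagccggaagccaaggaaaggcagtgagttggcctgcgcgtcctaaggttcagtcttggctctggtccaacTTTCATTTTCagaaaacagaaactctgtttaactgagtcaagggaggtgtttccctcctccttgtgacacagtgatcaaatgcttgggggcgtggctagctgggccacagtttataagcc

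The window of Isg15 held 3 matches, that of Ifit1 2, that of Ifit3 2 and that of Rsad2 1. Of the 33 interferon list genes with a promoter entry, 21 (63.64%) held a match, against 936 of 27025 genes (3.46%) with an entry of the same length, 4.48% of the genes called lower in KC2 and 3.13% of those called higher. A match is a description of the sequence and does not show that a factor binds there.

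Isg15, a ubiquitin-like protein that viral infection induces, was at 23.3, 32.6, 27.2 and 33.7 CPM in KC2 libraries, against 300.3, 163, 287 and 257 CPM in KC1 libraries (log2 fold change -3.11 ± 0.22, adjusted p = 1.09e-06). Ifit1, which binds foreign RNA caps, was at 66.1, 45.7, 46.97 and 35.4 CPM in KC2 libraries, against 218, 167, 215 and 239.7 CPM in KC1 libraries (log2 fold change -2.11 ± 0.20, adjusted p = 8.51e-06). Ifit3, its partner, was at 119.5 ± 19.6 CPM in KC2 and 565 ± 48.4 CPM in KC1 (log2 fold change -2.24 ± 0.16, adjusted p = 1.06e-06), and reads could be split with its close copy Ifit3b. Rsad2, the antiviral enzyme viperin, was at 81.01 ± 6.09 CPM in KC2 and 230.3 ± 25.3 CPM in KC1 (log2 fold change -1.51 ± 0.13, adjusted p = 3.84e-06). In none of these genes did a KC2 library reach the lowest KC1 library. The members with the largest differences were Oasl1, an OAS-like antiviral protein, at 25.4, 61.3, 50.7 and 55.7 CPM in KC2 libraries, against 869, 751, 916 and 859 CPM in KC1 libraries (log2 fold change -4.14 ± 0.27, adjusted p = 6.94e-07), followed by Irf7 and Ifi205. Irf7, the transcription factor that amplifies type I interferon, was at 242 ± 84.7 CPM in KC2 and 3576 ± 250.4 CPM in KC1 (log2 fold change -3.89 ± 0.30, adjusted p = 1.99e-06). Ifi205, of the DNA-sensing p200 family, was at 26.2 ± 4.23 CPM in KC2 and 361 ± 65.7 CPM in KC1 (log2 fold change -3.78 ± 0.19, adjusted p = 1.75e-07). The exceptions were Cxcl9, Cxcl10, Iigp1 and Ifi44, which were not called, and Cxcl10, a chemokine for T cells, was at 145 ± 83.3 CPM in KC2 and 139.9 ± 27.7 CPM in KC1 (adjusted p = 0.897). Ifnb1, the interferon beta gene itself, was higher in KC2, at 4.76 ± 1.64 CPM in KC2 and 0.4202 ± 0.165 CPM in KC1 (log2 fold change 3.47 ± 0.45, adjusted p = 7.35e-05).

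The summed interferon list was 4243 to 5904 CPM in KC2 libraries, against 15992 to 19539 CPM in KC1 libraries. Expressed relative to the pan-macrophage sum of the same library, the same ratio as for the endothelial list, it amounted to 64.7, 22.1, 21.4 and 20.4% in KC2 libraries, against 52.9, 38.8, 48.1 and 48.2% in KC1 libraries. On that ratio KC2 replicate 1 lay above every KC1 library, and the other 3 KC2 libraries lay below every KC1 library. The part of the macrophage and endothelial sums in the lower interferon list was not tested.

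**Figure D3:**
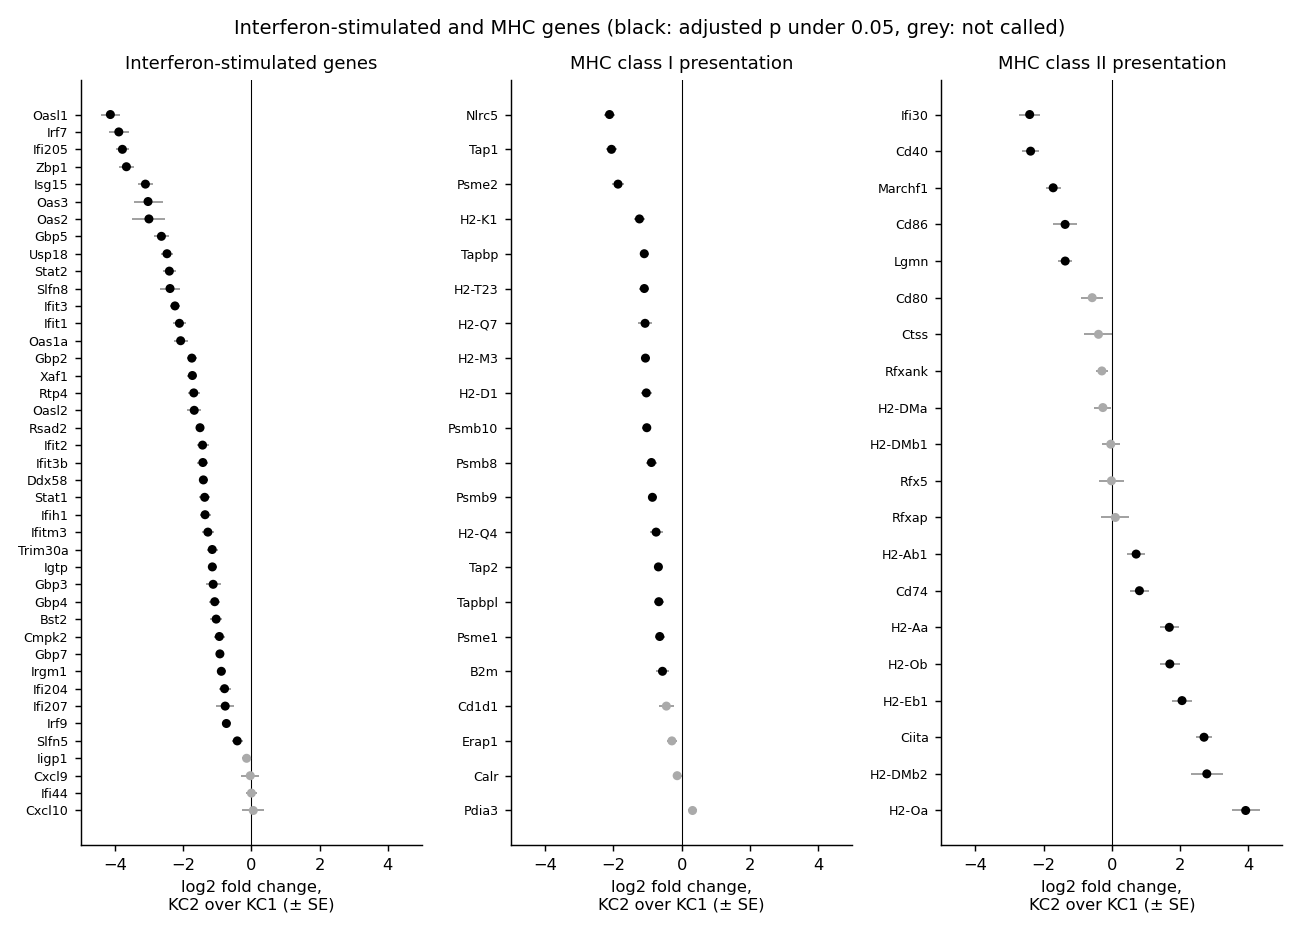
Log2 fold change (KC2 over KC1) with its SE for each tested member of the interferon-stimulated, MHC class I and MHC class II lists; black points were called at an adjusted p under 0.05 and grey points were not. Called interferon and class I members all lay below 0, while the class II list split, with H2-Oa at 3.92 and Ifi30 at -2.41 at its ends.

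Among genes of antigen presentation, class I members were mostly lower in KC2, while class II members went both ways. MHC class I molecules show peptides from inside the cell to CD8 T cells, and class II molecules show engulfed material to CD4 T cells. Of the class I list, 0 of 21 tested members were higher in KC2 and 17 lower (median log2 fold change -0.89), the remaining 4 not passing the test, and 1 member was called higher without KC2 replicate 1. Relative to the pan-macrophage sum the summed class I list was 308, 80.3, 78.5 and 76.5% in KC2 libraries, against 106, 81.8, 102 and 103% in KC1 libraries, above every KC1 library in KC2 replicate 1 and below every KC1 library in the other 3. Nlrc5, the activator of class I genes, was at 39.1, 50.1, 38.98 and 47.05 CPM in KC2 libraries, against 215, 156, 182 and 207 CPM in KC1 libraries (log2 fold change -2.12 ± 0.15, adjusted p = 1.13e-06). Tap1, a chain of the peptide transporter, was at 136 ± 21.02 CPM in KC2 and 567 ± 65.4 CPM in KC1 (log2 fold change -2.06 ± 0.16, adjusted p = 2.1e-06). Psme2, a proteasome activator chain, was at 197 ± 24.1 CPM in KC2 and 719 ± 150.0 CPM in KC1 (log2 fold change -1.87 ± 0.18, adjusted p = 1.12e-05). Of the class II list, 8 of 20 tested members were higher in KC2 and 5 lower (median log2 fold change -0.02), near the 31.9% and 27.9% of all genes. Its sum was 16073, 31945, 40246 and 38066 CPM in KC2 libraries, against 22700, 25993, 24348 and 20708 CPM in KC1 libraries, and overlapped. Relative to the pan-macrophage sum it was 245, 127, 148 and 132% in KC2 libraries, against 61.45, 63.05, 60.99 and 53.96% in KC1 libraries, higher in every KC2 library. Ciita, the activator of class II genes, was at 118, 151, 202 and 205 CPM in KC2 libraries, against 22.2, 37.9, 23.2 and 20.6 CPM in KC1 libraries (log2 fold change 2.70 ± 0.25, adjusted p = 7e-06). H2-Oa, a chain of the peptide-loading modulator H2-O, was at 25.8 ± 14.2 CPM in KC2 and 1.6995 ± 0.442 CPM in KC1 (log2 fold change 3.92 ± 0.41, adjusted p = 1.88e-05). H2-DMb2, of the loading catalyst H2-DM, was at 68.2 ± 51.8 CPM in KC2 and 9.91 ± 2.295 CPM in KC1 (log2 fold change 2.78 ± 0.47, adjusted p = 0.000497). The chain genes H2-Aa and H2-Eb1 and the invariant chain gene Cd74, named after their values were seen, had log2 fold changes of 1.68 ± 0.29, 2.06 ± 0.30 and 0.81 ± 0.28, each called. Classical MHC genes are close copies, so their single values are uncertain. H2-DMb2 had a log2 fold change of 2.14 without KC2 replicate 1. Cd74 was no longer called without KC2 replicates 2, 3 or 4 or KC1 replicates 1, 3 or 4 (log2 fold change 0.69 to 0.82, adjusted p 0.055 to 0.0874).

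Lower members of the class II list were Ifi30, a lysosomal reductase, at 234 ± 95.9 CPM in KC2 and 1247 ± 93.99 CPM in KC1 (log2 fold change -2.41 ± 0.32, adjusted p = 8.52e-05), Cd40, the costimulatory receptor, at 21.8 ± 7.85 CPM in KC2 and 114 ± 21.2 CPM in KC1 (log2 fold change -2.38 ± 0.24, adjusted p = 1.51e-05), and Marchf1, a ligase that removes class II from the surface (log2 fold change -1.72 ± 0.22). B cells and dendritic cells also express class II genes, and H2-Oa and H2-DMb2, like the summed B and plasma cell list, were highest in KC2 replicate 1 and next highest in replicate 3. H2-Aa, by contrast, was lowest in KC2 replicate 1, at 1568, 3152, 4202 and 3919 CPM in KC2 libraries, against 978, 1154, 1069 and 797 CPM in KC1 libraries. The part of those cells in the class II values was not tested.

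Acute phase and complement genes were among the transcripts that lay furthest below KC1. Of the metallothionein and acute phase list, 4 of 20 tested members were higher in KC2 and 13 lower (median log2 fold change -2.04), with the same counts without KC2 replicate 1. Its sum amounted to 12.3, 7.27, 3.98 and 6.31% in KC2 libraries, against 43.2, 27.9, 42.1 and 35.3% in KC1 libraries relative to the pan-macrophage sum, below every KC1 library in all 4 KC2 libraries. On that ratio Saa3 alone gave 19.15, 9.074, 17.28 and 13.49% in KC1 libraries, and Cfb 13.63, 12.28, 14.72 and 13.85%. Together they made up most of the sum in every KC1 library. The separation therefore cannot be read as a result of the other members. Saa3 (chromosome 7, 46711998 to 46719615, gene ID 20210), the serum amyloid A that macrophages make on contact with bacterial products, was at 3.36, 9.997, 12.5 and 12.5 CPM in KC2 libraries, against 7076, 3741, 6898 and 5176 CPM in KC1 libraries (log2 fold change -9.22 ± 0.52, adjusted p = 2.74e-07). Cfb (chromosome 17, 34856374 to 34862514, gene ID 14962), factor B of the alternative complement pathway, was at 30.7, 78.9, 81.4 and 70.2 CPM in KC2 libraries, against 5035, 5064, 5875 and 5316 CPM in KC1 libraries (log2 fold change -6.35 ± 0.34, adjusted p = 2.35e-07). C3, the central complement component, was at 26.8, 75.6, 69.5 and 55.9 CPM in KC2 libraries, against 600.4, 481, 667 and 564 CPM in KC1 libraries (log2 fold change -3.34 ± 0.30, adjusted p = 5.97e-06). C2, of the classical pathway, was at 41.4 ± 12.8 CPM in KC2 and 447 ± 29.3 CPM in KC1 (log2 fold change -3.43 ± 0.22, adjusted p = 6.18e-07). All KC2 libraries lay below all KC1 libraries in each of these. Saa1, a copy close enough to Saa2 for reads to be split, was at 1.91 ± 2.08 CPM in KC2 and 35.2 ± 12.4 CPM in KC1 (log2 fold change -4.22 ± 0.71, adjusted p = 0.000472). The members higher in KC2 were the metallothionein genes Mt1 and Mt2, Hp and Steap4. Mt2, which binds zinc and copper, was at 30.99 ± 10.3 CPM in KC2 and 6.91 ± 1.71 CPM in KC1 (log2 fold change 2.16 ± 0.28, adjusted p = 6.96e-05). Steap4, a metalloreductase, overlapped between groups at 40.3 ± 32.9 CPM in KC2 and 8.45 ± 4.25 CPM in KC1 (log2 fold change 2.25 ± 0.71, adjusted p = 0.019). Mt1, named after its value was seen, had a log2 fold change of 1.22 ± 0.16 (adjusted p = 9.79e-05). Saa1 had a log2 fold change of -5.28 without KC2 replicate 2. Steap4 was no longer called without KC2 replicate 2 or KC1 replicates 2 or 4 (log2 fold change 1.73 to 2.08, adjusted p 0.0548 to 0.0613).

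Inflammatory cytokines and NF-kB targets gave 10 of 37 tested members higher in KC2 and 19 lower (median log2 fold change -0.68), 11 higher and 19 lower without KC2 replicate 1, and 6 members were called higher without KC1 replicate 2 or 4. The summed list overlapped between groups. Relative to the pan-macrophage sum it was 44.2, 32.2, 17.1 and 28.9% in KC2 libraries, against 26.5, 17.8, 26.3 and 23.7% in KC1 libraries. On that ratio KC2 replicates 1, 2 and 4 lay above every KC1 library and KC2 replicate 3 below, and Tnf, given below, overlapped. Csf3, the granulocyte growth factor G-CSF, was at 0, 0, 0.0555 and 0.183 CPM in KC2 libraries, against 24.3, 11.2, 33.3 and 14.01 CPM in KC1 libraries (log2 fold change -8.34 ± 0.66, adjusted p = 2.68e-06). Il6 was at 0.452, 0.9997, 0.666 and 1.64 CPM in KC2 libraries, against 17.2, 9.13, 17.8 and 11.4 CPM in KC1 libraries (log2 fold change -3.89 ± 0.41, adjusted p = 1.89e-05). Sod2, the mitochondrial superoxide dismutase that NF-kB induces, was at 103 ± 19.5 CPM in KC2 and 1804 ± 304 CPM in KC1 (log2 fold change -4.12 ± 0.22, adjusted p = 2.09e-07). Il1rn, which encodes the antagonist of the interleukin-1 receptor, was at 23.7, 153, 104 and 183 CPM in KC2 libraries, against 1557, 1118, 1689 and 1313 CPM in KC1 libraries (log2 fold change -3.62 ± 0.51, adjusted p = 0.000147) and was named after its value was seen, as were Tnf and Il1b. Tnf, the tumour necrosis factor gene, was at 171 ± 71.1 CPM in KC2 and 302 ± 53.8 CPM in KC1 (log2 fold change -0.82 ± 0.32, adjusted p = 0.0456), and Il1b went the other way, at 939.9 ± 626 CPM in KC2 and 368 ± 92.2 CPM in KC1 (log2 fold change 1.35 ± 0.50, adjusted p = 0.037). Among members higher in KC2, Osm, the cytokine oncostatin M, was at 91.3, 640.3, 185 and 635 CPM in KC2 libraries, against 31.3, 11.9, 17.5 and 10.4 CPM in KC1 libraries (log2 fold change 4.45 ± 0.66, adjusted p = 0.000197). Like S100a8 and S100a9, Osm and Il1b were highest in KC2 replicates 2 and 4, and the part of neutrophil RNA in them was not tested. Csf1, the growth factor on which macrophages depend, was at 104, 199, 102 and 221 CPM in KC2 libraries, against 12.5, 6.13, 10.5 and 8.88 CPM in KC1 libraries (log2 fold change 4.04 ± 0.33, adjusted p = 3.11e-06). Csf3 had 1 count in KC2 without KC2 replicate 4, and then a ratio of KC1 to KC2 counts of 1136 (95% interval 204 to 44904). Tnf was no longer called without KC2 replicate 3 or KC1 replicates 1, 3 or 4 (log2 fold change -0.87 to -0.74, adjusted p 0.0723 to 0.102). Il1b was no longer called without KC2 replicates 2 or 4 or KC1 replicates 1, 2, 3 or 4 (log2 fold change 1.04 to 1.46, adjusted p 0.0603 to 0.106).

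Chemokines and their receptors showed 17 of 35 tested members higher in KC2 and 6 lower (median log2 fold change 0.94), 22 higher and 6 lower without KC2 replicate 1, and 12 of 29 higher and 5 lower without the 6 members that also stand on a list of another cell type. Cxcl13, the ligand that draws B cells, was at 19.2, 116, 102 and 104 CPM in KC2 libraries, against 2444, 2206, 2854 and 2439 CPM in KC1 libraries (log2 fold change -4.86 ± 0.50, adjusted p = 1.51e-05). Ccl5, a ligand for T cells and monocytes, was at 166, 97.8, 133 and 79.2 CPM in KC2 libraries, against 5055, 2644, 3814 and 3390.4 CPM in KC1 libraries (log2 fold change -4.97 ± 0.31, adjusted p = 5.66e-07). Ccl7, a ligand of CCR2, was at 34.4 ± 30.3 CPM in KC2 and 444 ± 136 CPM in KC1 (log2 fold change -3.69 ± 0.59, adjusted p = 0.000322). Several receptors were higher. Ccr2, the receptor of inflammatory monocytes, was at 75.6, 123, 143 and 121 CPM in KC2 libraries, against 12.9, 11.4, 9.94 and 10.3 CPM in KC1 libraries (log2 fold change 3.38 ± 0.20, adjusted p = 4.35e-07). The atypical receptors, which bind chemokines without classical signalling and are found on endothelium, included Ackr2 at 61.6 ± 23.2 CPM in KC2 and 0.292 ± 0.368 CPM in KC1 (log2 fold change 7.70 ± 0.56, adjusted p = 1.37e-06), Ackr4 with a log2 fold change of 5.12 ± 0.58 and Ackr1 with one of 5.01 ± 0.40. Ackr2 and Ackr4 were highest in KC2 replicate 1, as the endothelial sum was, and the part of endothelial RNA in them was not tested. Ccl7 had a log2 fold change of -4.48 without KC2 replicate 4. Ackr2 had a log2 fold change of 8.996 without KC1 replicate 1. Ackr4 had a log2 fold change of 4.43 without KC2 replicate 1.

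Pattern recognition genes were mostly lower in KC2. The Toll-like receptor and sensing list had 1 of 30 tested members higher in KC2 and 17 lower (median log2 fold change -0.89), and 4 higher and 20 lower without KC2 replicate 1. Tlr1, which pairs with TLR2 to bind lipopeptides, was at 18.4, 26.8, 58.8 and 42.4 CPM in KC2 libraries, against 324, 293, 342 and 354 CPM in KC1 libraries (log2 fold change -3.17 ± 0.32, adjusted p = 1.4e-05). Irak3, an inhibitor of Toll-like receptor signalling, was at 31.2 ± 3.83 CPM in KC2 and 216 ± 42.6 CPM in KC1 (log2 fold change -2.79 ± 0.17, adjusted p = 4.81e-07). Nlrc4, the inflammasome protein for flagellin, was at 11.04 ± 6.02 CPM in KC2 and 47.1 ± 7.24 CPM in KC1 (log2 fold change -2.10 ± 0.41, adjusted p = 0.00125). The member called higher was Tmem173, which encodes STING, the adaptor of cytosolic DNA sensing, at 139 ± 9.85 CPM in KC2 and 62.8 ± 7.86 CPM in KC1 (log2 fold change 1.15 ± 0.12, adjusted p = 2.19e-05). The summed list was 1448 to 3457 CPM in KC2 libraries, against 4769.8 to 5129 CPM in KC1 libraries, without overlap, but relative to the pan-macrophage sum it was 22.1, 12.8, 10.8 and 11.96% in KC2 libraries, against 12.9, 11.7, 12.8 and 12.4% in KC1 libraries, and on that ratio the groups overlapped. Tlr2 overlapped between groups, at 205 ± 95.7 CPM in KC2 and 136 ± 19.1 CPM in KC1 (adjusted p = 0.132). Tlr2 was called without KC2 replicate 1 (log2 fold change 0.84, adjusted p = 0.00209).

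Checkpoint and costimulatory genes gave 9 of 33 tested members higher in KC2 and 14 lower (median log2 fold change -0.58), and 10 higher and 15 lower without KC2 replicate 1. Cd274, named after its values were seen, encodes PD-L1, the ligand that restrains T cells through PD-1, and was at 27.9, 41.9, 41.3 and 30.9 CPM in KC2 libraries, against 398, 358, 463 and 427 CPM in KC1 libraries (log2 fold change -3.54 ± 0.18, adjusted p = 1.89e-07). Ido1, which breaks down tryptophan, had no count in KC2 and was at 3.39, 1.696, 2.15 and 1.73 CPM in KC1 libraries, at least 53.1-fold lower in KC2 against a floor of 3 counts over the KC2 libraries (adjusted p = 0.000134). Il4i1, an amino acid oxidase that dampens T cells, was at 8.92 ± 2.92 CPM in KC2 and 195 ± 27.2 CPM in KC1 (log2 fold change -4.45 ± 0.25, adjusted p = 2.65e-07). Siglece, an inhibitory lectin of myeloid cells, was at 28.1, 236, 174 and 225 CPM in KC2 libraries, against 1993, 1875, 2379 and 1995 CPM in KC1 libraries (log2 fold change -3.64 ± 0.53, adjusted p = 0.000183). On the higher side were Clec4g, given above, Tnfsf14, which encodes the ligand LIGHT, at 33.2 ± 13.4 CPM in KC2 and 0.961 ± 1.53 CPM in KC1 (log2 fold change 5.11 ± 0.79, adjusted p = 0.000259). Cd24a, a sialylated surface antigen of granulocytes, B cells and epithelium, was at 76.5 ± 24.4 CPM in KC2 and 2.83 ± 1.83 CPM in KC1 (log2 fold change 4.75 ± 0.42, adjusted p = 5.56e-06). Tnfsf14 had a log2 fold change of 7.30 without KC1 replicate 1.

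Among receptors for sugars, debris and antibody, C-type lectins were called higher more often than lower, while the shares of scavenger and Fc receptor genes called higher were near the 31.9% of all genes. Of the C-type lectin list, 18 of 33 tested members were higher in KC2 and 7 lower (median log2 fold change 0.98), 19 higher and 10 lower without KC2 replicate 1, and 15 of 30 higher and 7 lower without the 3 members that also stand on a list of another cell type. Mgl2, a galactose-type lectin of alternatively activated macrophages and dendritic cells, was at 45.5, 87.3, 104 and 154 CPM in KC2 libraries, against 0, 0, 0.269 and 0.139 CPM in KC1 libraries (log2 fold change 9.80 ± 0.62, adjusted p = 5.38e-07). Cd209d, of the CD209 family whose members lie side by side and share sequence, had a ratio of KC2 to KC1 counts of 633 (95% interval 113 to 25020.0). The lower members included Clec4a1 and Clec4a2, inhibitory receptors of the DCIR family, at 82.3 ± 38.7 CPM in KC2 and 414 ± 20.8 CPM in KC1 (log2 fold change -2.33 ± 0.36, adjusted p = 0.000266) and with a log2 fold change of -1.74 ± 0.42. Colec12, a scavenger receptor with a collagen stem, was at 20.2 ± 8.18 CPM in KC2 and 62.2 ± 14.4 CPM in KC1 (log2 fold change -1.62 ± 0.32, adjusted p = 0.0012). Mgl2 had 2 counts in KC1 without KC1 replicate 3, and then a ratio of KC2 to KC1 counts of 2102 (95% interval 582 to 17359). Cd209d had no count in KC1 without KC1 replicate 1 and was then at least 159-fold higher in KC2.

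Scavenger and efferocytosis genes had 8 of 25 tested members higher in KC2 and 8 lower (median log2 fold change 0.02), and 8 higher and 9 lower without KC2 replicate 1. The secreted bridging proteins that tie dying cells to phagocytes were higher in KC2. Mfge8 was at 282, 154, 191 and 133 CPM in KC2 libraries, against 4.29, 1.89, 3.16 and 1.803 CPM in KC1 libraries (log2 fold change 6.09 ± 0.36, adjusted p = 3.45e-07). Gas6, a ligand of the receptors MERTK and AXL, was at 349 ± 80.9 CPM in KC2 and 20.8 ± 1.84 CPM in KC1 (log2 fold change 4.07 ± 0.19, adjusted p = 1.2e-07). Pros1, protein S, was at 399.8 ± 25.5 CPM in KC2 and 32.3 ± 11.4 CPM in KC1 (log2 fold change 3.63 ± 0.23, adjusted p = 5.8e-07). Both receptor genes themselves were not called, with Mertk at 205 ± 44.1 CPM in KC2 and 293 ± 78.7 CPM in KC1 (adjusted p = 0.0604) and Axl at 497 ± 251 CPM in KC2 and 801 ± 313 CPM in KC1 (adjusted p = 0.21). Mertk was called lower with DESeq2 (adjusted p = 0.046) and with upper-quartile scaling (adjusted p = 0.0498). Lrp1, a large endocytic receptor, was lower, at 49.8, 281, 257 and 256 CPM in KC2 libraries, against 1458, 1907, 1175 and 1434 CPM in KC1 libraries (log2 fold change -2.82 ± 0.45, adjusted p = 0.000338), beside Marco and Timd4 above. Endothelial cells also express Mfge8, Gas6 and Pros1, and the part of their RNA in these values was not tested. Mertk was called without KC2 replicate 2 or KC1 replicate 3 (log2 fold change -0.65, adjusted p 0.029 to 0.0345).

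Fc receptor and complement genes gave 9 of 29 tested members higher in KC2 and 11 lower (median log2 fold change -0.58), 10 higher and 13 lower without KC2 replicate 1, and 7 of 27 higher and 11 lower without the 2 members that also stand on a list of another cell type. Fcgr2b, the inhibitory IgG receptor of sinusoidal endothelium and B cells, was at 2832, 1783, 1809.8 and 1894 CPM in KC2 libraries, against 43.3, 32.9, 47.004 and 38.1 CPM in KC1 libraries (log2 fold change 5.69 ± 0.24, adjusted p = 7.44e-08). Cd59a, which blocks the membrane attack complex, was at 306 ± 65.5 CPM in KC2 and 10.2 ± 0.794 CPM in KC1 (log2 fold change 4.90 ± 0.19, adjusted p = 5.76e-08). C5ar2, a C5a receptor, was at 136 ± 8.16 CPM in KC2 and 20.8 ± 4.72 CPM in KC1 (log2 fold change 2.70 ± 0.16, adjusted p = 4.37e-07). The complement components Cfb, C2 and C3 led the lower side. C1qa, a chain of the recognition molecule C1q that macrophages make, was not called, at 2243 ± 1211 CPM in KC2 and 3342 ± 298 CPM in KC1 (adjusted p = 0.29).

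The alternative activation list, read in mice from macrophages treated with interleukin-4, had 10 of 24 tested members higher in KC2 and 6 lower (median log2 fold change 0.56), and 11 higher and 7 lower without KC2 replicate 1. Retnla, a small secreted protein that interleukin-4 induces strongly, was at 15.5, 60.6, 83.2 and 149.5 CPM in KC2 libraries, against 0, 0, 0.269 and 0 CPM in KC1 libraries (log2 fold change 10.001 ± 0.99, adjusted p = 1.2e-05). Together with Mgl2 it was lowest in KC2 replicate 1 and highest in KC2 replicate 4. Ccl17, a ligand of CCR4, was at 3.15 ± 2.25 CPM in KC2 and 0.324 ± 0.168 CPM in KC1 (log2 fold change 3.26 ± 0.69, adjusted p = 0.00208). Other members of the list moved down. Arg1, which turns arginine into ornithine, was at 11.8, 15.9, 26.7 and 32.9 CPM in KC2 libraries, against 80.04, 78.6, 96.8 and 61.7 CPM in KC1 libraries (log2 fold change -1.86 ± 0.29, adjusted p = 0.000301). Il10, the cytokine that restrains macrophages, was at 9.18 ± 3.68 CPM in KC2 and 79.9 ± 15.5 CPM in KC1 (log2 fold change -3.12 ± 0.27, adjusted p = 4.17e-06). Tgm2, a transglutaminase, was at 723 ± 158 CPM in KC2 and 2277 ± 166 CPM in KC1 (log2 fold change -1.66 ± 0.19, adjusted p = 3.12e-05).

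**Figure D4:**
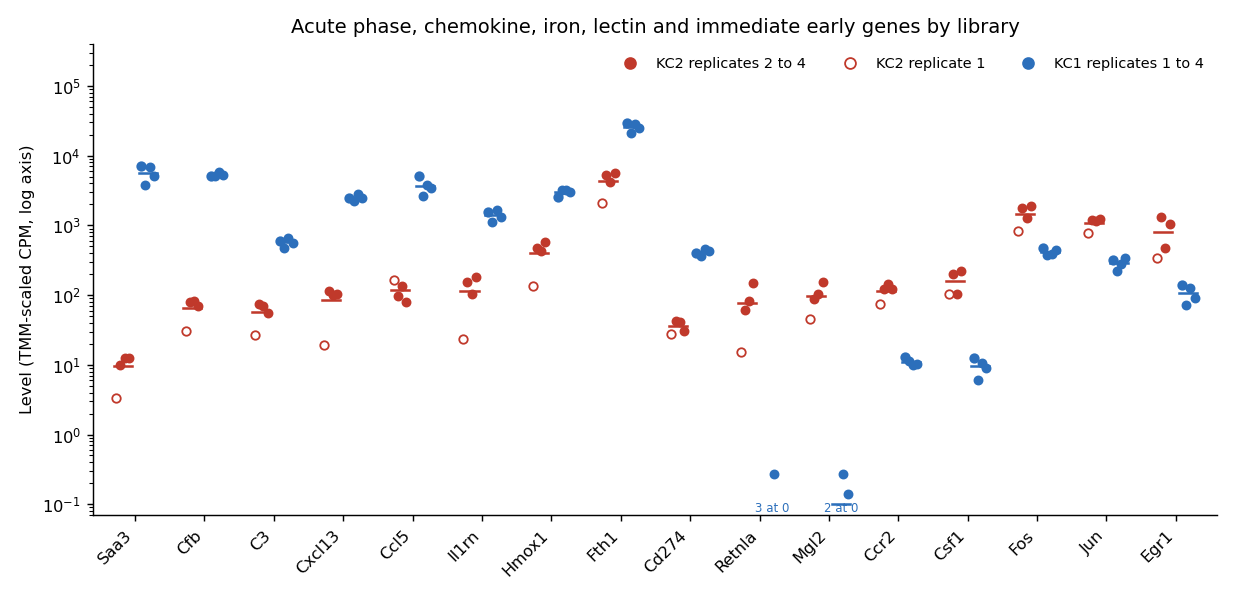
Level of 16 genes in each library (TMM-scaled CPM, log axis), KC2 in red to the left of KC1 in blue; points are libraries, the open red point is KC2 replicate 1, lines are group means and libraries without a count are written at the foot. Saa3, Cfb, C3, Cxcl13, Ccl5, Il1rn, Hmox1, Fth1 and Cd274 lay lower in every KC2 library than in any KC1 library, and Retnla, Mgl2, Ccr2, Csf1, Fos, Jun and Egr1 lay higher.

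Iron and heme genes were largely lower in KC2. Kupffer cells take up aged red cells and hemoglobin, split heme, store the iron in ferritin and export it through ferroportin. Of the iron and heme list, 6 of 30 tested members were higher in KC2 and 19 lower (median log2 fold change -1.14), 6 higher and 20 lower without KC2 replicate 1, and 4 of 27 higher and 18 lower without the 3 members that also stand on a list of another cell type. Hmox1, the oxygenase that opens the heme ring, was at 135, 471, 436 and 575 CPM in KC2 libraries, against 2557, 3213, 3262 and 3015 CPM in KC1 libraries (log2 fold change -2.90 ± 0.38, adjusted p = 8.19e-05). Slc48a1, which carries heme out of the phagolysosome, was at 111, 121, 127 and 117 CPM in KC2 libraries, against 554, 622, 669 and 552 CPM in KC1 libraries (log2 fold change -2.33 ± 0.13, adjusted p = 2.92e-07), with no KC2 library apart from the rest. Spic, described above, is needed for iron-recycling macrophages of the spleen in mice. The ferritin chain gene Fth1 and the ferroportin gene Slc40a1, named after their values were seen, had log2 fold changes of -2.59 ± 0.31 and -1.23 ± 0.40. Fth1 was at 2094, 5272, 4188 and 5562 CPM in KC2 libraries, against 29586, 20951, 28042 and 24742 CPM in KC1 libraries. Higher members were Slc39a8, a zinc and iron importer, at 161 ± 22.7 CPM in KC2 and 3.16 ± 1.69 CPM in KC1 (log2 fold change 5.67 ± 0.33, adjusted p = 3.36e-07), and Heph, the membrane ferroxidase hephaestin, which had no count in KC1 and was at least 309-fold higher in KC2 (adjusted p = 2.68e-06). Relative to the pan-macrophage sum of the same library, the summed iron and heme list amounted to 159, 83.99, 72.3 and 76.9% in KC2 libraries, against 168, 131, 151 and 136% in KC1 libraries. On that ratio KC2 replicate 1 overlapped KC1 and the other 3 KC2 libraries lay below it. The alpha and beta globins, which come from red cells, did not pass the test in either direction. Slc40a1 was no longer called without KC1 replicate 2 (log2 fold change -0.73, adjusted p = 0.0587).

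Lipid handling genes were more often lower than higher in KC2. The lipid uptake, storage and efflux list had 7 of 39 tested members higher in KC2 and 21 lower (median log2 fold change -0.55), and 8 higher and 21 lower without KC2 replicate 1. Its sum, in which the abundant members weigh most, was 15105 to 33994 CPM in KC2 libraries, against 32489 to 36408 CPM in KC1 libraries, and the groups overlapped. Relative to the pan-macrophage sum it was 230.3, 122, 124 and 118% in KC2 libraries, against 96.9, 88.3, 81.4 and 84.7% in KC1 libraries. It was thus higher in every KC2 library, and the direction of the summed list turned on that ratio. Apoe alone, given below, was at 169.5, 100.7, 104.4 and 98.48% of the pan-macrophage sum in KC2 libraries. In KC1 libraries Apoe was at 73.5, 62.82, 59.3 and 61.97%, in both groups most of the summed list. The turn therefore cannot be read as a result of the other members. Cd36, the fatty acid and oxidised LDL receptor, was at 746, 729, 725 and 715 CPM in KC2 libraries, against 42.6, 151, 45.1 and 26.7 CPM in KC1 libraries (log2 fold change 3.46 ± 0.48, adjusted p = 0.000133), the highest KC1 library being replicate 2, as for Mrc1. Mgll, which frees fatty acids from monoacylglycerols, was at 344 ± 87.4 CPM in KC2 and 3.95 ± 1.03 CPM in KC1 (log2 fold change 6.44 ± 0.28, adjusted p = 7.69e-08), and Fabp5 rose as given above. Nr1h3, which encodes LXR alpha, the sterol sensor of Kupffer cells, was at 24.1, 129, 154 and 161 CPM in KC2 libraries, against 1584, 1612, 1725 and 1630.4 CPM in KC1 libraries (log2 fold change -3.81 ± 0.49, adjusted p = 7.49e-05). Abca1, the cholesterol exporter that LXR induces, was at 108 ± 41.1 CPM in KC2 and 455 ± 39.8 CPM in KC1 (log2 fold change -2.08 ± 0.25, adjusted p = 4.31e-05) and was named after its value was seen. Lpl, which hydrolyses circulating triglycerides, was at 140.4 ± 73.3 CPM in KC2 and 769 ± 311 CPM in KC1 (log2 fold change -2.45 ± 0.48, adjusted p = 0.00118). Fabp3, another fatty acid binding protein, had 3 counts over the KC2 libraries, and the ratio of KC1 to KC2 counts was 36.6 (95% interval 12.1 to 181). Apoe, the main apolipoprotein of macrophages, was not called, at 23302 ± 8253 CPM in KC2 and 25127 ± 1696 CPM in KC1 (adjusted p = 0.762). Endothelial cells also express Cd36, Mgll and Fabp5, and the part of their RNA was not tested. Cd36 had a log2 fold change of 4.25 without KC1 replicate 2.

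The cholesterol and fatty acid synthesis list had 15 of 33 tested members higher in KC2 and 10 lower (median log2 fold change 0.50), and 13 higher and 10 lower without KC2 replicate 1. Fads2 and Elovl6, a desaturase and an elongase, had log2 fold changes of 5.49 ± 0.65 and 3.35 ± 0.63, and Stard4, a sterol carrier, one of 3.56 ± 0.27. Scd2, a desaturase, was lower, at 20.5, 11.2, 11.2 and 10.7 CPM in KC2 libraries, against 146, 170.0, 147 and 161 CPM in KC1 libraries (log2 fold change -3.54 ± 0.22, adjusted p = 5.38e-07). Elovl1, another elongase, and Srebf1, the regulator of fatty acid synthesis, were lower by smaller amounts (log2 fold changes -1.11 ± 0.12 and -1.002 ± 0.16). In the fatty acid oxidation list 9 of 25 members were higher and 6 lower, and without KC2 replicate 1 the number higher was 5, so part of the calls there rested on that library. Pdk4, the kinase that inhibits pyruvate dehydrogenase, was at 95.3, 88.3, 56.6 and 93.7 CPM in KC2 libraries, against 0.899, 1.305, 0.873 and 1.04 CPM in KC1 libraries (log2 fold change 6.33 ± 0.24, adjusted p = 5.76e-08). Ppargc1b, a coactivator of mitochondrial genes, was at 6.52 ± 1.09 CPM in KC2 and 53.8 ± 3.91 CPM in KC1 (log2 fold change -3.04 ± 0.16, adjusted p = 1.89e-07). Oxidative phosphorylation genes differed little in size, with 8 of 35 higher, 12 lower and a median log2 fold change of -0.15, 7 higher and 13 lower without KC2 replicate 1, and 5 were called higher without KC1 replicate 4 and 7 lower without KC1 replicate 3. The counts of both oxidation lists have to be read beside the 31.9% higher and 27.9% lower among all genes. Among oxidative phosphorylation genes the fold changes were small. The largest were Ndufa1, of complex I, at 1.42 ± 0.20 and Cox5a, of complex IV, at -1.44 ± 0.20 on the log2 scale. Fads2 had a log2 fold change of 6.62 without KC1 replicate 3.

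Glycolysis genes were mostly lower in KC2, with 6 of 25 tested members higher in KC2 and 13 lower (median log2 fold change -0.85), and 7 higher and 13 lower without KC2 replicate 1. Relative to the pan-macrophage sum the summed list was 82.7, 28.6, 23.2 and 25.2% in KC2 libraries, against 46.4, 37.8, 45.1 and 43.7% in KC1 libraries, above every KC1 library in KC2 replicate 1 and below every KC1 library in the other 3. Hk2 and Hk3 are hexokinases that trap glucose. Hk2 was at 19.8 ± 6.97 CPM in KC2 and 93.01 ± 11.9 CPM in KC1 (log2 fold change -2.24 ± 0.26, adjusted p = 3.88e-05). Hk3 was at 111 ± 55.2 CPM in KC2 and 541 ± 36.2 CPM in KC1 (log2 fold change -2.29 ± 0.40, adjusted p = 0.000619). Slc2a6, a hexose transporter of myeloid cells, was at 43.2 ± 23.2 CPM in KC2 and 317 ± 67.8 CPM in KC1 (log2 fold change -2.88 ± 0.41, adjusted p = 0.000146). In contrast Slc2a3, the transporter GLUT3, was at 76.2, 331, 117 and 236 CPM in KC2 libraries, against 10.5, 10.3, 8.26 and 3.54 CPM in KC1 libraries (log2 fold change 4.54 ± 0.51, adjusted p = 2.99e-05), highest where the neutrophil markers were highest. Ldhb, the lactate dehydrogenase chain that favours pyruvate, was at 152, 96.7, 118 and 92.4 CPM in KC2 libraries, against 2.004, 2.81, 1.88 and 2.01 CPM in KC1 libraries (log2 fold change 5.71 ± 0.23, adjusted p = 6.63e-08). The lysosome list had 8 of 45 tested members higher in KC2 and 20 lower (median log2 fold change -0.23), and 9 higher and 20 lower without KC2 replicate 1. Grn, progranulin, was at 791, 1346, 1434 and 1473 CPM in KC2 libraries, against 6530.2, 7363, 7008 and 6353 CPM in KC1 libraries (log2 fold change -2.43 ± 0.22, adjusted p = 7e-06). Ctsz, a cathepsin, was at 594 ± 164 CPM in KC2 and 3289 ± 287 CPM in KC1 (log2 fold change -2.47 ± 0.23, adjusted p = 8.41e-06). Higher in KC2 were Manba, a mannosidase, Arsb, a sulfatase, and Ctsk, a collagen-cutting cathepsin, with log2 fold changes of 1.56 ± 0.17, 2.35 ± 0.34 and 2.87 ± 0.58.

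Growth factor, matrix, adhesion and coagulation lists each held more members called higher than lower. Of the growth and angiogenic factor list, 22 of 34 tested members were higher in KC2 and 4 lower (median log2 fold change 2.62), 23 higher and 4 lower without KC2 replicate 1, and 18 of 30 higher and 4 lower without the 4 members that also stand on a list of another cell type. Wnt2, which sinusoidal endothelium sends to hepatocytes, was at 245, 127, 152 and 121 CPM in KC2 libraries, against 1.04, 0, 0.403 and 0.694 CPM in KC1 libraries (log2 fold change 8.24 ± 0.52, adjusted p = 5.66e-07). Bmp2, the endothelial signal that sets hepcidin in hepatocytes, was at 375, 382, 245 and 287 CPM in KC2 libraries, against 1.797, 1.83, 2.82 and 1.66 CPM in KC1 libraries (log2 fold change 7.31 ± 0.25, adjusted p = 5.76e-08). Wnt9b had no count in KC1 and was at least 44.99-fold higher in KC2 (adjusted p = 0.00135). Hgf, the hepatocyte growth factor, named after its values were seen, was at 18.1, 29.99, 25.9 and 34.8 CPM in KC2 libraries, against 2.21, 7.89, 2.55 and 3.05 CPM in KC1 libraries (log2 fold change 2.78 ± 0.40, adjusted p = 0.000152). Among lower members, Pdgfb, a mitogen for stellate cells, was at 13.1 ± 2.67 CPM in KC2 and 38.4 ± 4.43 CPM in KC1 (log2 fold change -1.55 ± 0.17, adjusted p = 2.71e-05). Tgfb1, the main fibrogenic cytokine, was at 2.52 ± 0.893 CPM in KC2 and 6.42 ± 1.41 CPM in KC1 (log2 fold change -1.35 ± 0.34, adjusted p = 0.00545). Gdf15, a stress-induced hormone, was at 13.7 ± 2.87 CPM in KC2 and 28.04 ± 2.897 CPM in KC1 (log2 fold change -1.04 ± 0.18, adjusted p = 0.000551). Hgf had a log2 fold change of 3.37 without KC1 replicate 2.

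Matrix genes gave 16 of 32 tested members higher in KC2 and 7 lower (median log2 fold change 1.07), 19 higher and 7 lower without KC2 replicate 1, and 12 of 26 higher and 6 lower without the 6 members that also stand on a list of another cell type. Hspg2 and Lama4, the basement membrane proteins perlecan and a laminin chain, had log2 fold changes of 6.86 ± 0.25 and 6.79 ± 0.51, and Sparc, a matrix-binding glycoprotein, was at 1166 ± 388 CPM in KC2 and 23.96 ± 7.84 CPM in KC1 (log2 fold change 5.60 ± 0.33, adjusted p = 3.64e-07). The proteases Mmp14 and Mmp19 were lower. Mmp14, which activates other metalloproteases, was at 55.9 ± 7.898 CPM in KC2 and 173 ± 37.8 CPM in KC1 (log2 fold change -1.63 ± 0.18, adjusted p = 2.21e-05). Mmp19 was at 3.95 ± 4.43 CPM in KC2 and 31.8 ± 6.24 CPM in KC1 (log2 fold change -3.02 ± 0.62, adjusted p = 0.0017). Lox, the enzyme that cross-links collagen, was lower, at 0.238 ± 0.1903 CPM in KC2 and 1.35 ± 0.755 CPM in KC1 (log2 fold change -2.46 ± 0.76, adjusted p = 0.0169). Adhesion genes gave 22 of 34 tested members higher in KC2 and 8 lower (median log2 fold change 1.72), 22 higher and 9 lower without KC2 replicate 1, and 19 of 29 higher and 7 lower without the 5 members that also stand on a list of another cell type. Beside Esam, the junction proteins Jam2 and Jam3 were higher, Jam2 at 194 ± 45.3 CPM in KC2 and 8.11 ± 1.77 CPM in KC1 (log2 fold change 4.58 ± 0.23, adjusted p = 1.62e-07) and Jam3 with a ratio of KC2 to KC1 counts of 206 (95% interval 70.3 to 1002). Mcam, an endothelial and pericyte antigen, had a log2 fold change of 5.75 ± 0.39. The leukocyte integrin chains Itgam and Itgal, given above, and Itga5, the fibronectin receptor chain, at 81.6 ± 10.3 CPM in KC2 and 594 ± 42.6 CPM in KC1 (log2 fold change -2.86 ± 0.15, adjusted p = 1.78e-07), led the lower side. Lama4 had a log2 fold change of 7.67 without KC1 replicate 1. Mmp19 had a log2 fold change of -4.16 without KC2 replicate 4. Lox was no longer called without KC1 replicate 4 (log2 fold change -2.03, adjusted p = 0.0714).

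Of the coagulation list, 11 of 22 tested members were higher in KC2 and 3 lower (median log2 fold change 1.20), and 14 higher and 3 lower without KC2 replicate 1. F8 and F13a1, described above, were among the higher members, with F2r, the thrombin receptor PAR1, at 428, 331, 293 and 335 CPM in KC2 libraries, against 4.56, 3.91, 6.85 and 3.75 CPM in KC1 libraries (log2 fold change 6.18 ± 0.25, adjusted p = 6.63e-08). Procr (chromosome 2, 155751125 to 155755478, gene ID 19124), the endothelial protein C receptor that some leukocytes also carry, went the other way, at 10.5, 12.5, 13.9 and 10.96 CPM in KC2 libraries, against 1303, 771, 1247 and 1183 CPM in KC1 libraries (log2 fold change -6.55 ± 0.24, adjusted p = 5.76e-08). Each KC2 library lay far below each KC1 library for Procr, although the summed endothelial list was higher in KC2. Serpinb2, a protease inhibitor that macrophages make, was at 2.97 ± 1.702 CPM in KC2 and 9.69 ± 5.38 CPM in KC1 (log2 fold change -1.70 ± 0.57, adjusted p = 0.0249). Serpinb2 was no longer called without KC1 replicates 1 or 2 (log2 fold change -1.69 to -1.34, adjusted p 0.0508 to 0.084).

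Most cell cycle genes on the list were higher in KC2. Of the proliferation list, 31 of 39 tested members were higher in KC2 and 2 lower (median log2 fold change 1.41), and 30 higher and 2 lower without KC2 replicate 1. Cenpa, the histone variant of centromeres, was at 47.4, 37.5, 45.1 and 40.2 CPM in KC2 libraries, against 2.49, 3.52, 3.56 and 2.57 CPM in KC1 libraries (log2 fold change 3.80 ± 0.18, adjusted p = 1.44e-07). Ccnb1, the mitotic cyclin, was at 5.98 ± 3.38 CPM in KC2 and 1.01 ± 0.261 CPM in KC1 (log2 fold change 2.56 ± 0.47, adjusted p = 0.000858). Rrm2, which makes deoxynucleotides, was at 9.44 ± 3.91 CPM in KC2 and 1.61 ± 1.34 CPM in KC1 (log2 fold change 2.54 ± 0.53, adjusted p = 0.00196). Mki67, the Ki-67 antigen of cycling cells, named after its values were seen, overlapped between groups, at 10.1, 6.23, 7.72 and 7.73 CPM in KC2 libraries, against 4.15, 6.59, 4.83 and 3.75 CPM in KC1 libraries (log2 fold change 0.72 ± 0.26, adjusted p = 0.0354). The lower members were E2f1, a transcription factor of S phase, at 11.6 ± 2.103 CPM in KC2 and 31.8 ± 4.02 CPM in KC1 (log2 fold change -1.45 ± 0.17, adjusted p = 4.47e-05). Tk1, a thymidine kinase, was at 16.4 ± 6.32 CPM in KC2 and 37.7 ± 3.63 CPM in KC1 (log2 fold change -1.20 ± 0.24, adjusted p = 0.00156). Several cell types may cycle in a sorted fraction, and which of them held these transcripts was not tested. Rrm2 had a log2 fold change of 3.28 without KC1 replicate 2. Mki67 was no longer called without KC2 replicates 1, 3 or 4 or KC1 replicates 1, 3 or 4 (log2 fold change 0.58 to 0.73, adjusted p 0.0566 to 0.0962).

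Immediate early genes, which rise within minutes of a stimulus, cell dissociation included, had 23 of 31 tested members higher in KC2 and 1 lower (median log2 fold change 1.65), 24 higher and 1 lower without KC2 replicate 1, and 22 of 30 higher and 1 lower without the 1 member that also stands on a list of another cell type. Fos and Jun, partners in the AP-1 factor, were named after their values were seen. Fos was at 833, 1798, 1265 and 1875 CPM in KC2 libraries, against 474, 373, 385 and 442 CPM in KC1 libraries (log2 fold change 1.79 ± 0.25, adjusted p = 0.00013). Jun was at 783, 1192, 1150.3 and 1253 CPM in KC2 libraries, against 320.2, 219, 279 and 342 CPM in KC1 libraries (log2 fold change 1.92 ± 0.20, adjusted p = 1.86e-05). Klf2, a factor that flow induces in endothelium and that quiets leukocytes, was at 58.6 ± 6.32 CPM in KC2 and 8.98 ± 1.92 CPM in KC1 (log2 fold change 2.71 ± 0.17, adjusted p = 5.41e-07). Nr4a2 and Nr4a3 encode orphan nuclear receptors that signals induce. Nr4a2 was at 10.7 ± 4.85 CPM in KC2 and 0.424 ± 0.293 CPM in KC1 (log2 fold change 4.64 ± 0.53, adjusted p = 3.2e-05). Nr4a3 was at 7.68 ± 3.87 CPM in KC2 and 0.308 ± 0.232 CPM in KC1 (log2 fold change 4.61 ± 0.58, adjusted p = 6.75e-05). Ccn1, a matrix signal that stretch induces, was at 148, 25.6, 23.9 and 47.2 CPM in KC2 libraries, against 7.46, 5.42, 5.17 and 8.74 CPM in KC1 libraries (log2 fold change 3.19 ± 0.57, adjusted p = 0.000723), with KC2 replicate 1 far above the rest. The member called lower was Dusp2, a phosphatase of MAP kinases, at 7.01 ± 1.66 CPM in KC2 and 21.9 ± 9.05 CPM in KC1 (log2 fold change -1.64 ± 0.32, adjusted p = 0.0012). How the cells were isolated is not described in the labels, and the part of isolation in these genes was not tested. Ccn1 had a log2 fold change of 2.27 without KC2 replicate 1.

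The stress lists had medians between -0.36 and 0.48, and their counts have to be read beside the 31.9% higher and 27.9% lower among all genes. Of the heat shock list, 6 of 18 tested members were higher in KC2 and 1 lower (median log2 fold change 0.48), and 12 members were higher and 1 lower without KC2 replicate 1. Hspb1, a small heat shock protein of endothelium and muscle, was at 140.3, 243, 162 and 265 CPM in KC2 libraries, against 9.19, 5.09, 11.6 and 9.36 CPM in KC1 libraries (log2 fold change 4.52 ± 0.30, adjusted p = 7.94e-07). Hsf1, the factor that drives the response, was slightly lower, at 69.6 ± 4.18 CPM in KC2 and 105 ± 7.704 CPM in KC1 (log2 fold change -0.59 ± 0.11, adjusted p = 0.000753). The unfolded protein and amino acid response list had 8 of 27 tested members higher in KC2 and 6 lower (median log2 fold change 0.07), and 9 higher and 5 lower without KC2 replicate 1. Chac1, which breaks down glutathione, was at 13.5 ± 6.73 CPM in KC2 and 0.532 ± 0.752 CPM in KC1 (log2 fold change 4.66 ± 0.72, adjusted p = 0.000265). Asns, asparagine synthetase, was at 4.31 ± 1.32 CPM in KC2 and 14.6 ± 7.82 CPM in KC1 (log2 fold change -1.76 ± 0.47, adjusted p = 0.00783) with overlapping groups, and it was not called with limma voom and quality weights (log2 fold change -1.55, adjusted p = 0.084). The NRF2 and antioxidant list had 7 of 29 tested members higher in KC2 and 12 lower (median log2 fold change -0.36), and 7 higher and 13 lower without KC2 replicate 1. Nqo1, a quinone reductase and textbook NRF2 target, was at 7.001 ± 3.13 CPM in KC2 and 0.932 ± 0.425 CPM in KC1 (log2 fold change 2.90 ± 0.45, adjusted p = 0.000264), whereas Txn1, thioredoxin, was at 192 ± 27.2 CPM in KC2 and 759.8 ± 160.1 CPM in KC1 (log2 fold change -1.98 ± 0.19, adjusted p = 9.46e-06) and Hmox1 fell as above. Slc7a11, the cystine importer, was at 48.9 ± 32.4 CPM in KC2 and 6.75 ± 3.57 CPM in KC1 (log2 fold change 2.86 ± 0.53, adjusted p = 0.000878), highest in KC2 replicates 2 and 4. The p53 target list had 7 of 25 tested members higher in KC2 and 9 lower (median log2 fold change -0.22), and 8 higher and 9 lower without KC2 replicate 1. Cdkn1a, the cell cycle inhibitor p21, was at 144, 223, 183 and 306 CPM in KC2 libraries, against 567, 438, 734 and 613 CPM in KC1 libraries (log2 fold change -1.46 ± 0.24, adjusted p = 0.000437). Plk2, a kinase of the stress response, was at 442 ± 81.8 CPM in KC2 and 95.98 ± 19.5 CPM in KC1 (log2 fold change 2.20 ± 0.19, adjusted p = 4.53e-06). Of the cytosolic ribosomal proteins, 22 of 31 were higher and 0 lower, and 23 higher and 0 lower without KC2 replicate 1, with Rps20 at 151 ± 20.2 CPM in KC2 and 50.9 ± 12.6 CPM in KC1 (log2 fold change 1.57 ± 0.18, adjusted p = 4.02e-05) and Rpl32 at 315 ± 34.9 CPM in KC2 and 118 ± 13.9 CPM in KC1 (log2 fold change 1.42 ± 0.14, adjusted p = 1.19e-05). Ribosomal protein genes have many processed copies in the genome, so their single values are uncertain. Chac1 had a log2 fold change of 6.35 without KC1 replicate 1.

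Transcription factors of the macrophage lineage were called as often in either direction, 13 of 40 higher and 13 lower, near the 31.9% and 27.9% of all genes. Without KC2 replicate 1, 14 were higher and 13 lower. Mef2c, a MEF2 factor that endothelial and B cells also use, was at 145, 112, 94.1 and 112 CPM in KC2 libraries, against 4.98, 5.42, 3.29 and 5.06 CPM in KC1 libraries (log2 fold change 4.63 ± 0.20, adjusted p = 9.04e-08). Its relative Mef2d, the gene knocked out in some of the tumour cells of the same study, was not called, at 58.5, 47.6, 44.1 and 49.4 CPM in KC2 libraries, against 43.4, 44.4, 43.1 and 53.96 CPM in KC1 libraries (log2 fold change 0.11 ± 0.13, adjusted p = 0.484). Runx3, a factor of cytotoxic lymphocytes and some myeloid cells, was at 23.7 ± 3.76 CPM in KC2 and 3.22 ± 0.612 CPM in KC1 (log2 fold change 2.88 ± 0.21, adjusted p = 1.29e-06). Spic, Irf7 and Nr1h3 led the lower side. Spi1, which encodes the master myeloid factor PU.1, was at 113 ± 86.9 CPM in KC2 and 187 ± 117 CPM in KC1 (adjusted p = 0.265). Spi1 was called without KC2 replicate 2 (log2 fold change -1.36, adjusted p = 0.0362).

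**Figure D5:**
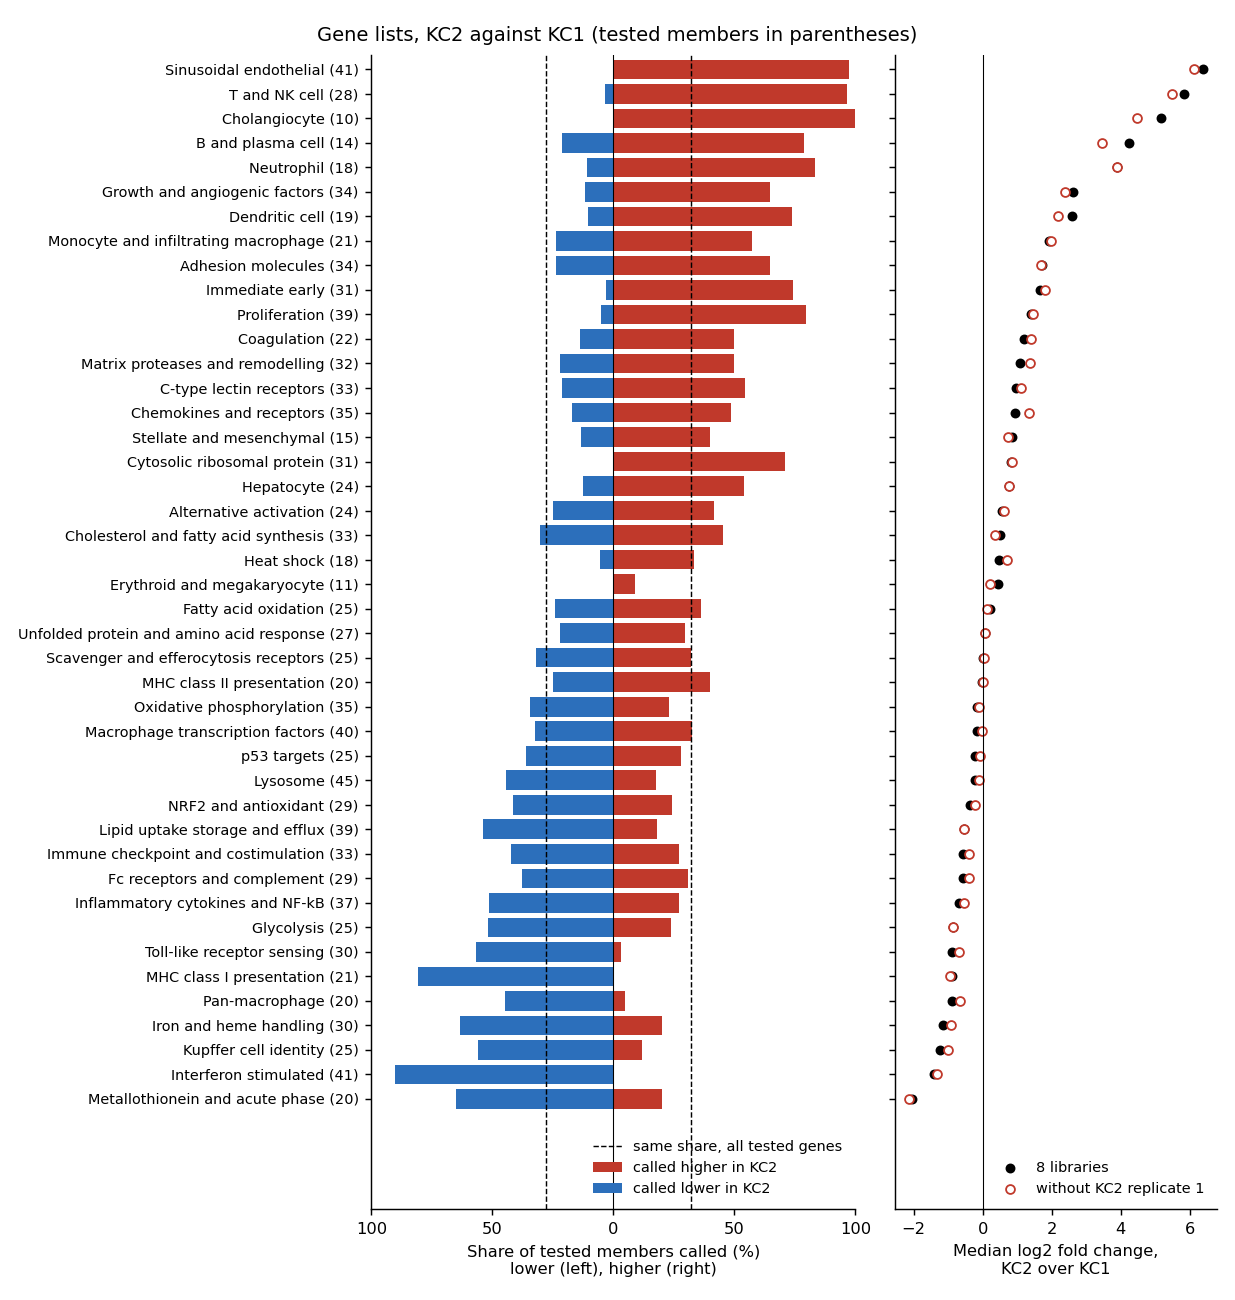
Share of tested members called higher (red, right) or lower (blue, left) in KC2 for 43 gene lists (left panel, in %), with the shares of all tested genes as dashed lines, and the median log2 fold change of each list with 8 libraries (black) and without KC2 replicate 1 (open, right panel). Endothelial, T and NK cell, cholangiocyte and B cell markers had the highest medians and the acute phase, interferon-stimulated and Kupffer cell lists the lowest.

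Over all genes with at least 5 CPM on average in the higher group and no overlap between groups, the 12 genes with the largest fitted log2 fold changes in each direction mixed known and unnamed genes. For a gene without a count in a group the fitted value depends on the prior count, so these genes are not ranked by fold. Mgl2, Igfbp7 and Clec4g, for instance, lie outside the 12, although their ratios of mean CPM, KC2 over KC1, of 958, 430.2 and 406 exceed the lower bounds of several genes below. On the higher side were Cd209a, Heph, Ncr1 and Retnla, given above, and Enpep, a peptidase of angiotensin, at 244, 173, 180.2 and 164 CPM in KC2 libraries, against 0, 0.1305, 0.269 and 0.0694 CPM in KC1 libraries (log2 fold change 10.56 ± 0.37, adjusted p = 5.76e-08). Cnmd, chondromodulin, an inhibitor of vessel growth, had no count in KC1 and was at 9.68, 36.2, 20.5 and 20.8 CPM in KC2 libraries, at least 419-fold higher (adjusted p = 2.25e-05). Limch1, an actin-binding protein, Hepacam2, an adhesion protein, and Gpr141b, an orphan receptor, also had no count in KC1 and were at least 159.8-, 180.5- and 203-fold higher. The remaining names were Gm29804, LOC100041599 and LOC101056144, which had no count in KC1 and were at least 1702-, 1141- and 161-fold higher. RefSeq classes Gm29804 and LOC101056144 as pseudogenes that lie side by side on chromosome 4, so reads from similar copies could be placed on them. Enpep had 3 counts in KC1 without KC1 replicate 3, and then a ratio of KC2 to KC1 counts of 2835 (95% interval 970.0 to 13751). LOC101056144 was, without KC2 replicate 1, at least 91.1-fold higher in KC2.

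On the lower side, Saa3, Csf3, Procr and Cfb have been given. Calb2, the calcium-binding protein calretinin, had no count in KC2 and was at 18.6, 8.74, 10.1 and 14.5 CPM in KC1 libraries, at least 307-fold lower in KC2 (adjusted p = 7.72e-06). Gpr84, a receptor for medium-chain fatty acids on activated macrophages, was at 1.35, 7.23, 3.22 and 9.74 CPM in KC2 libraries, against 416, 361, 514 and 406 CPM in KC1 libraries (log2 fold change -6.31 ± 0.54, adjusted p = 4.21e-06). Ppm1n, a protein phosphatase, was at 0.707 ± 0.5201 CPM in KC2 and 81.5 ± 24.4 CPM in KC1 (log2 fold change -6.84 ± 0.42, adjusted p = 4.44e-07). Zfp811, a zinc finger protein, was at 0.0627 ± 0.1255 CPM in KC2 and 37.2 ± 8.72 CPM in KC1 and had 5 counts over the KC2 libraries, all in replicate 1. Hydin, a protein of motile cilia, and Plekhg4, a guanine nucleotide exchange factor, had log2 fold changes of -6.60 ± 0.82 and -6.14 ± 0.87. Gm44504 had a log2 fold change of -7.56 ± 0.72. Plekhg4 overlaps Slc9a5 and Kctd19, and Gm44504 overlaps Ubl4a and Slc10a3, so their values are uncertain where the counting ignored strand. Ppm1n had a log2 fold change of -7.45 without KC2 replicate 2. Hydin had no count in KC2 without KC2 replicate 4 and was then at least 189.9-fold lower in KC2. Plekhg4 had no count in KC2 without KC2 replicate 2 and was then at least 389.7-fold lower in KC2. Gm44504 had no count in KC2 without KC2 replicate 1 and was then at least 337-fold lower in KC2.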

How the data were processed

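Poly(A)-selected stranded RNA libraries were made after TRIzol extraction, per the labels' protocols. The authors deposited expected counts per gene for the 4 KC2 and 4 KC1 libraries in 1 table, and FastQC, HISAT, RSEM and build mm10 are named, with no version, per the submitters' processing notes. Whether counting used strand is not given in the sources used here. The table held 18185 genes, 18131 of them (99.7%) matched to RefSeq GRCm38 by gene ID, 0 rows of the mitochondrial genome, and 0 sample columns without a sample. A date conversion had altered 25 symbols, which were restored from the IDs.

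Counts were rounded, filtered with filterByExpr, scaled by TMM and tested with edgeR 4.0.16 (quasi-likelihood F test, R 4.3.3, group as the 1 factor), with Benjamini-Hochberg adjustment over the 12774 genes kept and a common biological coefficient of variation of 0.267. The SE of a log2 fold change is its size divided by the square root of F. A gene without a count in a group is set against a floor of 3 counts over that group (0.042 CPM for KC2, 0.0508 CPM for KC1), and with 1 to 3 counts the ratio has a 95% exact binomial interval, which covers counting error only. The steps were tested on simulated data. Alternatives used limma 3.58.1 and DESeq2 1.42.0.

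The 44 gene lists (1253 of 1261 entries with a row) and the members were chosen with earlier results of these data known. Named genes are Mrc1, Esam and Marco, the 12 largest called log2 fold changes in each direction without overlap and at 5 CPM or more, the 3 largest called members of each list in each direction with the member of smallest p, the 3 most abundant markers of each other cell type, and members not called. Others are marked as chosen after their values were seen. Some genes that meet this rule are not reported here.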

Additional observations from a re-analysis of the deposited data

Results flagged for a closer look

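In groups of 4 libraries, a library was set apart where its gap to the nearest other exceeded Dixon's 95% critical share of the group's range, among 158 groups whose values are printed per library. Chance would flag about 1 in 20 groups of independent, normally distributed values, and 20 were flagged. The groups come from the same libraries and their genes vary together, so the number flagged cannot be set against that rate. KC2 replicate 1 was high for the summed endothelial list (59244 CPM, nearest 35082), Esam (888 CPM, nearest 539), Clec4g (5104 CPM, nearest 3798), Dnase1l3 (14367 CPM, nearest 7534), Fcgr2b (2832 CPM, nearest 1894), Alb (149.7 CPM, nearest 89.7) and Scd2 (20.5 CPM, nearest 11.2). The same library was low for the summed pan-macrophage list (6559.9 CPM, nearest 25117), Cxcl13 (19.2 CPM, nearest 102) and Lrp1 (49.8 CPM, nearest 256).

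KC1 replicate 2 was high for Mrc1 (285 CPM, nearest 100.2), Vsig4 (694 CPM, nearest 286), Hpgd (129.5 CPM, nearest 52.7), Ciita (37.9 CPM, nearest 23.2), Cd36 (151 CPM, nearest 45.1), Hgf (7.89 CPM, nearest 3.05) and Ldhb (2.81 CPM, nearest 2.01), each of them but Vsig4 called higher in KC2. Its summed endothelial list was not the highest of KC1, but Dnase1l3, which Kupffer cells share, weighed heavily in that sum. Dnase1l3 was at 886, 675, 1157 and 664 CPM in KC1 libraries, against sums of 1776, 1629.7, 2045 and 1429.6 CPM. Relative to the pan-macrophage sum, Stab2 was highest of KC1 in replicate 2 (0.336%), whereas Lyve1 and Kdr were not. The part of endothelial RNA in these genes was not tested. The remaining flags were single values, Retnla at 0.269 CPM in KC1 replicate 3 against 0 in the others, Bmp2 at 2.82 CPM in KC1 replicate 3 (nearest 1.83) and Mef2d at 54.0 CPM in KC1 replicate 4 (nearest 44.4).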

How the results depend on the processing

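The 7638 calls became 7873 with DESeq2, 7645 with RLE scaling, 7628 with upper-quartile scaling, 7956 without the filter on low counts, 8060 with limma voom and sample quality weights, and 7114 to 7804 when single libraries were left out. Quality weighting gave KC2 replicate 1 the lowest weight, 0.245. No scaling moved the median log2 fold change by over 0.008. Each of these scalings levels the libraries on the bulk of their genes, so this cannot test a difference shared by most genes. Of the 227 named genes called, 215 kept their call and sign under all alternatives, and 12 lost the call under at least 1. Of 1264 recounts of list members, 30 moved by over 1.5 times, among them 11 lower C-type lectins (against 7) and 12 higher heat shock genes (against 6) with voom, and 6 higher cytokine genes (against 10) with the replicate block. The cause of these shifts was not tested.

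Direction changed for 4 genes that were not called. Without single libraries the log2 fold change ranged from -0.37 to 0.064 for Ptprc, from -0.40 to 0.31 for Csf3r, from -0.42 to 0.24 for Cxcl10 and from -0.22 to 0.12 for Apoe, and Apoe was at 0.017 with voom.

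With the replicate block 3809 genes were higher and 3478 lower in KC2. Deviations of same-numbered KC2 and KC1 libraries correlated at 0.039, 0.0039, -0.024 and -0.014, within the range for unlike numbers (-0.11 to 0.087). With 4 libraries per group this cannot exclude pairing, and the labels do not say whether equal numbers share an animal or day. Cxcl10 was at -0.079 under the block. With limma voom and quality weights Asns and Serpinb2 (adjusted p = 0.0601) were not called, while Tlr2 (adjusted p = 0.0098) and Hba-a2 (adjusted p = 0.0334) were. Under the block Trf, Cd74, Steap4, Tnf, Il1b, Serpinb2 and Mki67 were not called, while Clec4f (adjusted p = 0.0393) and Mertk (adjusted p = 0.0282) were.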
